A study of Mus musculus with 110 samples.

Results

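The genes examined here encode the enzymes that make, break down and obey cAMP and cGMP, the cyclic nucleotide messengers. They were chosen by symbol from the count table, as every adenylyl cyclase (Adcy), soluble or membrane guanylyl cyclase (Gucy1, Gucy2), cyclic nucleotide phosphodiesterase (Pde), PKA catalytic or regulatory subunit (Prkac, Prkar) and cGMP-dependent kinase (Prkg). The rule found 49 genes of the 24056 in the table: 10 adenylyl cyclases, 4 soluble guanylyl cyclase subunits, 5 membrane guanylyl cyclases, 22 phosphodiesterases, 2 PKA catalytic subunits, 4 PKA regulatory subunits and 2 cGMP-dependent kinases. Gucy1a3 and Gucy1b3 are older symbols of Gucy1a1 and Gucy1b1, and Pde6d, kept by its symbol, encodes a prenyl-binding protein and not an esterase. Of the 49, 42 passed the filter on low counts in all 7 groups of libraries tested. Adcy4, Adcy10, Gucy1b2 and Pde6a passed in some of them, and Gucy2d, Pde6b and Pde6c passed in none, with at most 19 reads in any library.

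The 110 libraries came from R6/2 mice, which carry a fragment of the human huntingtin gene with an expanded CAG repeat and model Huntington's disease, and from NCAR mice. The mice received AAV carrying either a zinc-finger protein (ZFP) that represses mutant huntingtin or Delta, the control AAV. The groups are RZ (R6/2 with ZFP), RD (R6/2 with Delta), NZ (NCAR with ZFP) and ND (NCAR with Delta), and the strain label of all 4 conditions, NCAR included, reads R6/2 with its Jax stock number. RiboTag-HA immunoprecipitation (IP) isolates RNA on HA-tagged ribosomes of chosen cells, and Input is the RNA before it. The libraries form 4 sets, each with RZ, RD, NZ and ND: MG and n_ZFP_a_Rpl are labelled astrocytes, and hSyn and n_ZFP_n_Rpl are labelled neurons. MG has IP libraries only, 4 in each condition. The hSyn set has 4 RZ, 3 RD, 4 NZ and 5 ND libraries in each fraction, n_ZFP_a_Rpl has 4 RZ, 3 RD, 4 NZ and 4 ND, and n_ZFP_n_Rpl has 4 of each. The labels do not give tissue, age, sex, the promoters, the tagged protein or, set by set, the cells in which the ZFP acted, so the meaning of the set names is not spelled out here. The human transgene that the ZFP targets was not analysed here.

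Adenylyl cyclases make cAMP when stimulatory G proteins activate them, and inhibitory G proteins restrain most of them. Guanylyl cyclases make cGMP, the soluble form in response to nitric oxide and the membrane forms in response to peptides or calcium-sensing proteins. Phosphodiesterases end both signals, and PKA and the cGMP-dependent kinases carry them on by phosphorylating other proteins. In the striatum, the region hit first in Huntington's disease, dopamine D1 receptors and the adenosine receptor encoded by Adora2a act through Adcy5, and Pde10a and Pde1b are among the most abundant phosphodiesterases of the projection neurons.

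Promoter sequences are shown for Pde10a (at 2 starts), Adcy5, Pde1b and Pde7b, the phosphodiesterases and the cyclase with the largest or most widespread differences below, and for Prkar1a, which was higher in R6/2 and holds a full cAMP response element. Each window runs from 250 bases before to 50 bases after an annotated start (RefSeq, GRCm38.p6) and is written 5′ to 3′ on the gene's strand. Capitals mark the cAMP response element TGACGTCA or its core TGACG, on either strand. The core is part of the full element, so a window with the element is also counted for the core.
Pde10a, chr17:8801495-8801794, plus strand: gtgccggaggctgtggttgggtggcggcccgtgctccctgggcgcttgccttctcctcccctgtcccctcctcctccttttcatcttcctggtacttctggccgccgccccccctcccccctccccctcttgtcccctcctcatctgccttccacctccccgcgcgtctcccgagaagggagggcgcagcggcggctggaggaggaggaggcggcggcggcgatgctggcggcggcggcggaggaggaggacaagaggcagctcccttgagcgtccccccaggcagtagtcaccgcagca
Pde10a, chr17:8849735-8850034, plus strand: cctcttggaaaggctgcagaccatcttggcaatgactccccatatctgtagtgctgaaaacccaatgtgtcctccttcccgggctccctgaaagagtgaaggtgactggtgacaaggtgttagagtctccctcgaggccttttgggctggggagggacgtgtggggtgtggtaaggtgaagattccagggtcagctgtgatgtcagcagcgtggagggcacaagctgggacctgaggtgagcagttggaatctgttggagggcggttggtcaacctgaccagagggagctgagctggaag
Adcy5, chr16:35154614-35154913, plus strand: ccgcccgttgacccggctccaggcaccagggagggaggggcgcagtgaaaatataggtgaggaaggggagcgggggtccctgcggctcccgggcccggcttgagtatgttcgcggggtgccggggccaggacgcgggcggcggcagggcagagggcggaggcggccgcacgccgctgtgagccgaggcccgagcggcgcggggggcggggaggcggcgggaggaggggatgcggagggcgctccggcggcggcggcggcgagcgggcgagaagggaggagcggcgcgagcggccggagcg
Pde1b, chr15:103502784-103503083, plus strand: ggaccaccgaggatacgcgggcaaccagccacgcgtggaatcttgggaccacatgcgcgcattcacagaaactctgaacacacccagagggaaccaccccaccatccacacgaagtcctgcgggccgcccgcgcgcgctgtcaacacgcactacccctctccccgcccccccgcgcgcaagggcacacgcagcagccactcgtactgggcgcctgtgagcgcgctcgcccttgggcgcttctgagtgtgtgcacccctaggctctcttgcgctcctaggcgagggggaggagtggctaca
Pde7b, chr10:20548279-20548578, minus strand: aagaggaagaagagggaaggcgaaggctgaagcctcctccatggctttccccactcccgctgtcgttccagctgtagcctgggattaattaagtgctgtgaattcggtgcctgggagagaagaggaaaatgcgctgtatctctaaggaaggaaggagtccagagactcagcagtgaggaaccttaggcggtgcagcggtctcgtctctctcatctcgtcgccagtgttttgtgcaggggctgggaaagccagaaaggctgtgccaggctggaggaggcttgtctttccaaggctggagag
Prkar1a, chr11:109650699-109650998, plus strand: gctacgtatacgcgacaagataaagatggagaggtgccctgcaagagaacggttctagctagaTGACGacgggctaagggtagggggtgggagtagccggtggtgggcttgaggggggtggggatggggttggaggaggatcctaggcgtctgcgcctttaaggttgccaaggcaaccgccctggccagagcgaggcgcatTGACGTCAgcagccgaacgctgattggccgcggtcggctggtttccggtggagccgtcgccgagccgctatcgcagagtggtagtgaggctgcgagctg
Windows were at hand for 39 of the 49 genes, 79 windows in all, and the tables list none for Adcy6, Adcy8, Gucy2c, Pde3a, Pde3b, Pde6a, Pde6c, Pde7a, Pde9a and Prkg2. TGACGTCA stood in 1.79% of all 32851 windows and in 2 of the 79 windows here (2.53%), both of Prkar1a. TGACG stood in 20.8% of all windows and in 18 of the 79 (22.8%), which belong to 16 genes. The triplet run CAGCAGCAG stood in 1.82% of all windows and in 1 of the 79 (1.27%), of Prkar2b. The 5 windows shown of Pde10a, Adcy5, Pde1b and Pde7b hold none of these motifs. Their GC content was 71.3% and 56.7% for Pde10a, 79.0% for Adcy5, 67.0% for Pde1b and 55.7% for Pde7b.

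Reads assigned to genes totalled 34763967 to 72623472 in the IP libraries and 26369041 to 44176925 in the Input libraries. Levels are given as CPM, read counts relative to the library size after TMM scaling within a set and fraction, and log2 differences come from edgeR. Levels are compared between libraries and never between genes, because no transcript lengths were used. A call means a Benjamini-Hochberg adjusted p below 0.05 over all genes tested. Nothing in the labels says that libraries came from separate animals, so the p-values measure only the spread between libraries. Marker genes were checked in the IPs against the Inputs. In n_ZFP_a_Rpl, 10 of 10 astrocyte markers were higher in IP (median log2 1.83), as were 6 of 6 interneuron and 7 of 8 pan-neuronal markers, while 2 of 9 striatal projection neuron markers were higher and 5 lower. In n_ZFP_n_Rpl, 8 of 8 pan-neuronal and 8 of 9 projection neuron markers were higher (pan-neuronal median 0.58) and 8 of 10 astrocyte markers lower (median -0.80). In hSyn, 8 of 8 pan-neuronal and 9 of 9 projection neuron markers were higher (pan-neuronal median 0.51), while 3 astrocyte markers were higher and 4 lower. MG has no Input. No astrocyte, pan-neuronal or projection neuron marker was at 0 in any library. Strand was not stated for the counting, so reads of overlapping genes cannot be told apart. This touches Adcy3, Adcy7, Gucy1b2, Pde6d, Prkar1b and Prkg1, which overlap a protein-coding gene, and 35 of the 49 genes overlap another gene model of any kind.

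In R6/2 mice under the control AAV, the enzymes that set cyclic nucleotide levels were lower more often than higher. Pde10a, Adcy5, Pde1b, Pde7b, Pde1c and Pde2a were lower in RD than in ND in both astrocyte and both neuron IPs, and Gucy2f and Prkar1a were higher. The comparison asks how the disease genotype changes each gene without the repressor. In the MG IP, 5 were higher and 18 were lower of 43 tested (17.4% higher and 16.2% lower over all genes). In the n_ZFP_a_Rpl IP, 6 were higher and 20 were lower of 43 tested (20.6% higher and 24.7% lower over all genes). The share of lower genes was above the share over all genes in both, and the share of higher genes was below it. In the hSyn IP, 8 were higher and 19 lower of 43 tested (25.4% and 25.5% over all genes). In the n_ZFP_n_Rpl IP, 5 were higher and 18 lower of 42 tested (25.2% and 26.2% over all genes). The median log2 difference of the tested members was -0.26 in MG, -0.24 in n_ZFP_a_Rpl, -0.21 in hSyn and -0.21 in n_ZFP_n_Rpl, against 0.04, 0.00, 0.00 and 0.00 over all genes. The Inputs also held more lower than higher members. In the n_ZFP_a_Rpl Input, 8 were higher and 22 lower of 45 tested (24.4% and 24.7% over all genes). In the hSyn Input, 7 were higher and 15 lower of 44 tested (22.5% and 21.6% over all genes). In the n_ZFP_n_Rpl Input, 8 were higher and 21 lower of 44 tested (26.1% and 23.7% over all genes).

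Over the 42 members tested in all 4 IPs, 13 were lower in every one (31%, against 11.2% of all genes) and 2 were higher in every one (4.76%, against 8.83% of all genes). The 13 were Adcy1, Adcy5, Adcy9, Gucy1a2, Gucy2c, Pde10a, Pde1b, Pde1c, Pde2a, Pde3a, Pde7b, Pde8b and Prkg2, and the 2 were Gucy2f and Prkar1a. Of the 13, 10 were also lower in all 3 Inputs, and both of the others were higher there. No share over all genes was at hand, and Inputs paired with the IPs are no separate test. No member, 0 of 49, was called lower in one fit and higher in another, and 8 were called in no fit (Adcy4, Adcy10, Gucy2d, Pde5a, Pde6a, Pde6b, Pde6c and Prkg1). Of the calls, 14 of 23 in MG, 20 of 26 in n_ZFP_a_Rpl, 21 of 27 in hSyn and 19 of 23 in n_ZFP_n_Rpl held whichever single library was left out.

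**Figure D1:**
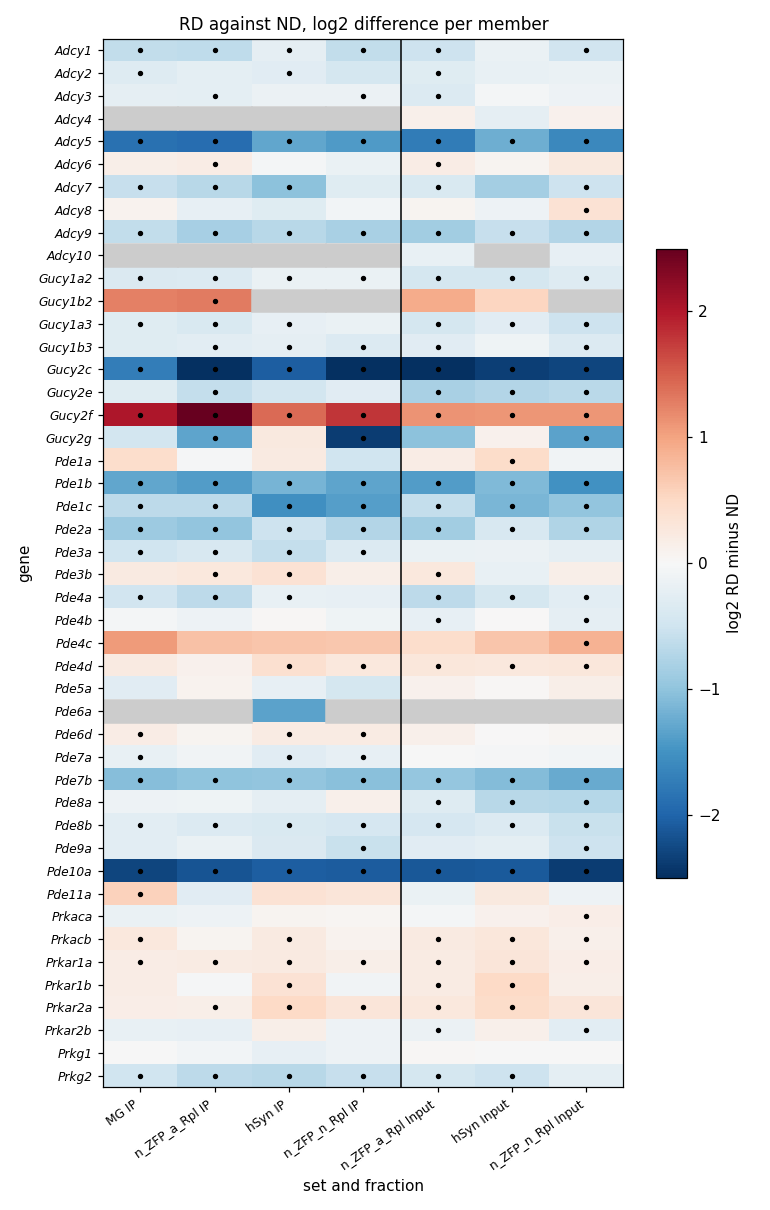
RD minus ND log2 difference of each tested gene (rows, ordered by role) in the 4 IPs and 3 Inputs (columns), with colour for size and direction and dots for calls. Pde10a lies between -2.37 and -2.06 in every column, and Gucy2f is above 1 in every column.

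Cell type markers moved with these genes. The summed CPM of the 9 striatal projection neuron markers in the table, in the MG IPs, ranged over 1665 to 2207 in RZ, 1770 to 2525 in RD, 3038 to 4691 in NZ and 5335 to 5780 in ND. In the n_ZFP_a_Rpl IPs the sum ranged over 3918 to 4461 in RZ, 1612 to 2140 in RD, 4904 to 6313 in NZ and 4828 to 5447 in ND. RD lay below ND in both sets, with 8 of 9 markers lower in each. In the hSyn IPs the sum ranged over 3674 to 4249 in RZ, 3982 to 4105 in RD, 9388 to 11160 in NZ and 9101 to 10400 in ND. In the n_ZFP_n_Rpl IPs it ranged over 3143 to 4811 in RZ, 2177 to 2887 in RD, 3957 to 5400 in NZ and 4954 to 7894 in ND. RD again lay below ND, with 8 of 9 markers lower in each. The summed CPM of the 10 astrocyte markers ranged over 12400 to 19810 in RZ, 13020 to 18180 in RD, 18440 to 35180 in NZ and 21490 to 27230 in ND in MG and over 12030 to 13140 in RZ, 14660 to 15890 in RD, 18110 to 23530 in NZ and 19390 to 23640 in ND in n_ZFP_a_Rpl. In hSyn it ranged over 3433 to 4096 in RZ, 2762 to 3350 in RD, 5663 to 9415 in NZ and 5942 to 8498 in ND, and in n_ZFP_n_Rpl over 2187 to 3249 in RZ, 1711 to 2302 in RD, 4304 to 5507 in NZ and 3506 to 4437 in ND. RD was below ND in all 4 sets, and 2, 5, 10 and 9 of the 10 astrocyte markers were called lower in MG, n_ZFP_a_Rpl, hSyn and n_ZFP_n_Rpl. The sum of the 6 interneuron markers ranged over 297 to 325 in RZ, 216 to 270 in RD, 342 to 441 in NZ and 328 to 435 in ND in n_ZFP_a_Rpl and over 190 to 212 in RZ, 126 to 138 in RD, 234 to 283 in NZ and 263 to 305 in ND in n_ZFP_n_Rpl. In MG it was 290 to 373 in RD and 511 to 657 in ND and in hSyn 119 to 166 in RD and 244 to 334 in ND, and 3, 6, 6 and 6 of the 6 were called lower in RD than in ND in MG, n_ZFP_a_Rpl, hSyn and n_ZFP_n_Rpl. The sum of the 4 oligodendrocyte precursor markers was 38.4 to 58.9 in RD and 81.9 to 117 in ND in MG (4 lower), 44.4 to 51.5 in RD and 52.8 to 60.8 in ND in n_ZFP_a_Rpl (1 lower), 22.6 to 26.04 in RD and 39.5 to 60.4 in ND in hSyn (3 lower) and 21.1 to 24.3 in RD and 36.3 to 45.8 in ND in n_ZFP_n_Rpl (1 lower). For RD against ND, in the same order of sets, 2, 0, 7 and 4 of the 8 microglia markers were lower. Of the 8 oligodendrocyte markers 0, 2, 3 and 4 were higher, and 1 was lower in n_ZFP_a_Rpl. Of the 8 endothelial and mural markers 3 were higher in n_ZFP_a_Rpl, and 4 were lower in hSyn and 2 in n_ZFP_n_Rpl. Of the 8 pan-neuronal markers 3, 4, 5 and 5 were lower and 1, 1, 2 and 2 higher. The part of these shifts in the results was not tested. In bulk libraries such as these, fewer cells of a type and less RNA per cell cannot be told apart.

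Among the adenylyl cyclases, Adcy1, Adcy5 and Adcy9 were lower in RD in all 4 IPs, and Adcy5 showed the lowest difference of the 8 tested in each of them. Adcy5 encodes the main cyclase of striatal projection neurons, which dopamine and adenosine receptors drive or restrain through G proteins (chr16:35154494-35305743, GRCm38.p6). Adcy5 in MG had 340, 450, 387 and 382 CPM in RZ, 293, 326, 288 and 402 in RD, 672, 1078, 1421 and 1165 in NZ and 1255, 1194, 1183 and 1143 in ND. Adcy5 in n_ZFP_a_Rpl measured 1147, 1369, 1154 and 1163 CPM in RZ, 476, 370 and 469 in RD, 1626, 1945, 1486 and 1656 in NZ and 1757, 1764, 1453 and 1549 in ND. For Adcy5, every RD value lay below every ND value in MG and n_ZFP_a_Rpl, while RZ lay above RD with no overlap in n_ZFP_a_Rpl and RZ and RD overlapped in MG. Adcy5 in hSyn had 685, 605, 679 and 673 CPM in RZ, 662, 624 and 700 in RD, 1337, 1567, 1766 and 1667 in NZ and 1542, 1621, 1751, 1574 and 1638 in ND. Adcy5 in n_ZFP_n_Rpl measured 1236, 1014, 857 and 746 CPM in RZ, 616, 567, 694 and 649 in RD, 1365, 1031, 1169 and 1327 in NZ and 1329, 1500, 1937 and 1993 in ND. For Adcy5, every RD value lay below every ND value in hSyn and n_ZFP_n_Rpl, while RZ lay above RD with no overlap in n_ZFP_n_Rpl and RZ and RD overlapped in hSyn. Adcy5 was lower in RD than in ND in the 4 IPs, with log2 differences of -1.87 ± 0.17 in MG, -1.90 ± 0.11 in n_ZFP_a_Rpl, -1.30 ± 0.08 in hSyn and -1.42 ± 0.16 in n_ZFP_n_Rpl (highest edgeR adjusted p = 3.59e-06). Adcy5 in the Inputs gave RD minus ND log2 differences of -1.76 ± 0.06 in n_ZFP_a_Rpl, -1.22 ± 0.10 in hSyn and -1.62 ± 0.13 in n_ZFP_n_Rpl, past the threshold in all 3. Adcy5 had RD and ND values that did not overlap in 7 of the 7 fits. Adcy5 gave RZ minus RD log2 differences of 0.25 ± 0.17 in MG, 1.46 ± 0.11 in n_ZFP_a_Rpl, 0.00 ± 0.08 in hSyn and 0.61 ± 0.16 in n_ZFP_n_Rpl, which passed in n_ZFP_a_Rpl and n_ZFP_n_Rpl. Adcy5 gave NZ minus ND log2 differences of -0.14 ± 0.17 in MG, 0.04 ± 0.10 in n_ZFP_a_Rpl, -0.04 ± 0.07 in hSyn and -0.47 ± 0.15 in n_ZFP_n_Rpl, of which none passed. Adcy5 gave RZ minus ND log2 differences of -1.62 ± 0.17 in MG, -0.43 ± 0.10 in n_ZFP_a_Rpl, -1.30 ± 0.07 in hSyn and -0.81 ± 0.16 in n_ZFP_n_Rpl, which passed in all 4 IPs.

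**Figure D2:**
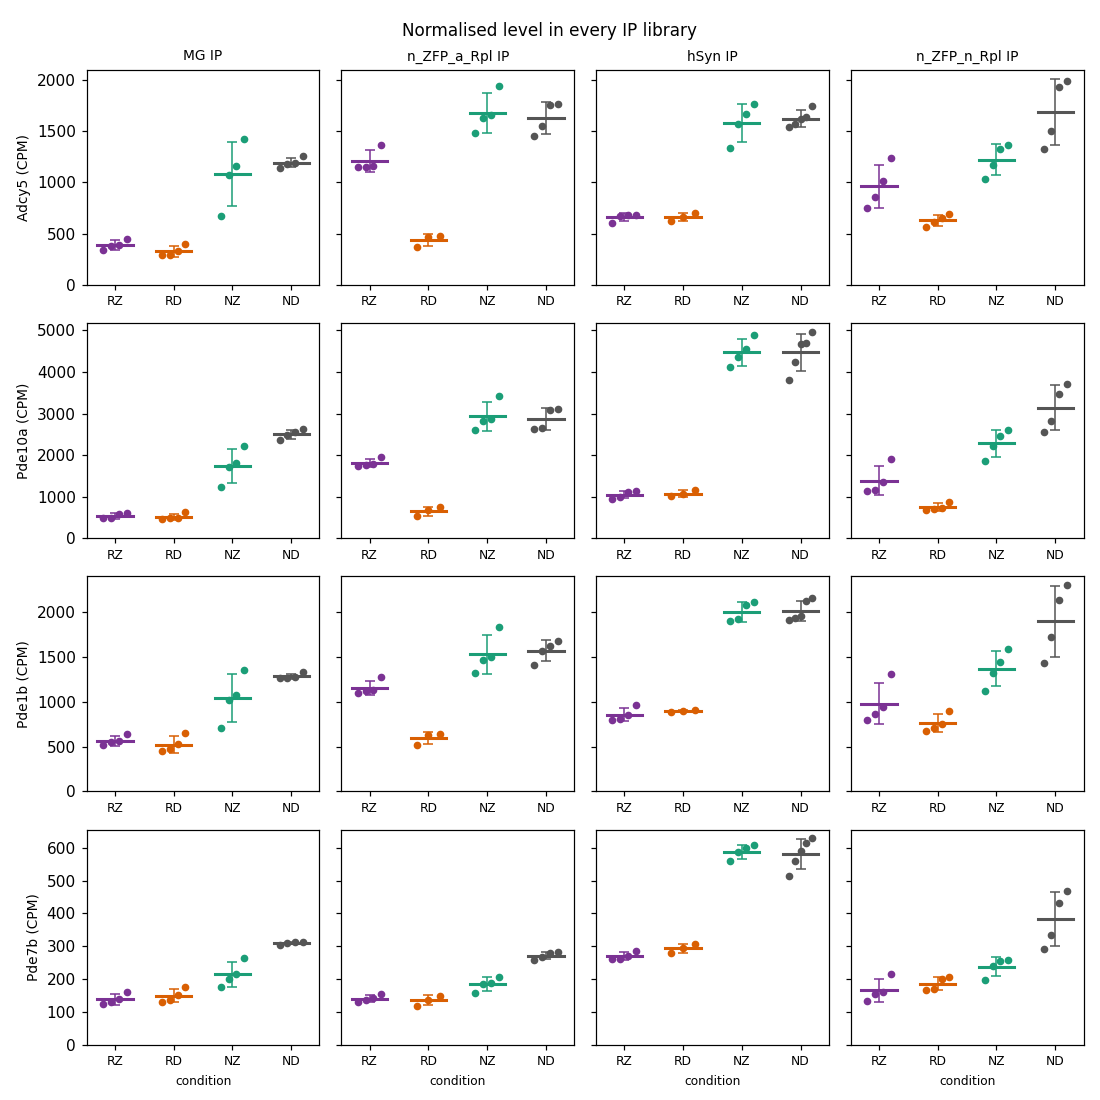
Level in CPM (vertical axis, from 0) of Adcy5, Pde10a, Pde1b and Pde7b in every IP library by condition, with a column of panels per set. Points are libraries, thick bars are means and whiskers are 1 SD, and RZ stands above RD in n_ZFP_a_Rpl for Adcy5, Pde10a and Pde1b but overlaps it for Pde7b.

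Adcy1 encodes a cyclase stimulated by calcium and calmodulin (chr11:7063433-7178506, GRCm38.p6). Adcy1 in MG had 208, 246, 250 and 233 CPM in RZ, 167, 182, 150 and 210 in RD, 214, 362, 279 and 292 in NZ and 281, 265, 268 and 268 in ND. Adcy1 in n_ZFP_a_Rpl measured 390, 356, 356 and 319 CPM in RZ, 246, 222 and 238 in RD, 428, 455, 486 and 440 in NZ and 402, 372, 357 and 338 in ND. For Adcy1, every RD value lay below every ND value in MG and n_ZFP_a_Rpl, while RZ lay above RD with no overlap in n_ZFP_a_Rpl and RZ and RD overlapped in MG. Adcy1 in hSyn had 329, 329, 346 and 351 CPM in RZ, 357, 355 and 338 in RD, 327, 482, 387 and 393 in NZ and 406, 432, 376, 376 and 467 in ND. Adcy1 in n_ZFP_n_Rpl measured 729, 803, 785 and 824 CPM in RZ, 754, 856, 646 and 557 in RD, 876, 1161, 967 and 986 in NZ and 1602, 1048, 824 and 855 in ND. For Adcy1, every RD value lay below every ND value in hSyn and RD and ND overlapped in n_ZFP_n_Rpl, while RZ and RD overlapped in hSyn and n_ZFP_n_Rpl. Adcy1 was lower in RD than in ND in the 4 IPs, with log2 differences of -0.61 ± 0.13 in MG, -0.64 ± 0.07 in n_ZFP_a_Rpl, -0.23 ± 0.09 in hSyn and -0.62 ± 0.18 in n_ZFP_n_Rpl (highest edgeR adjusted p = 0.0488). Adcy1 in the Inputs gave RD minus ND log2 differences of -0.52 ± 0.04 in n_ZFP_a_Rpl, -0.17 ± 0.10 in hSyn and -0.47 ± 0.15 in n_ZFP_n_Rpl, past the threshold in n_ZFP_a_Rpl and n_ZFP_n_Rpl only. Adcy1 had RD and ND values that did not overlap in 4 of the 7 fits. Adcy1 gave RZ minus RD log2 differences of 0.40 ± 0.13 in MG, 0.59 ± 0.07 in n_ZFP_a_Rpl, -0.05 ± 0.10 in hSyn and 0.16 ± 0.18 in n_ZFP_n_Rpl, which passed in n_ZFP_a_Rpl. Adcy1 gave NZ minus ND log2 differences of 0.08 ± 0.13 in MG, 0.30 ± 0.06 in n_ZFP_a_Rpl, -0.05 ± 0.09 in hSyn and -0.12 ± 0.18 in n_ZFP_n_Rpl, which passed in n_ZFP_a_Rpl. Adcy1 gave RZ minus ND log2 differences of -0.21 ± 0.13 in MG, -0.05 ± 0.06 in n_ZFP_a_Rpl, -0.28 ± 0.09 in hSyn and -0.46 ± 0.18 in n_ZFP_n_Rpl, which passed in hSyn. Adcy1 lost its RD minus ND call in hSyn when library RD 1, 2 or 3 or ND 0, 1 or 4 was left out and without the filter on low counts (edgeR or DESeq2 adjusted p up to 0.168 over the alternatives). Adcy1 lost its NZ minus ND call in n_ZFP_a_Rpl when library NZ 2 or 4 or ND 2, 3 or 4 was left out and with only the 2 groups in the fit (edgeR or DESeq2 adjusted p up to 0.0679 over the alternatives).

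Adcy9 encodes a widely expressed cyclase that responds little to forskolin (chr16:4284886-4437236, GRCm38.p6). Adcy9 in MG had 115, 115, 105 and 99.05 CPM in RZ, 91.5, 110, 100 and 123 in RD, 119, 141, 168 and 158 in NZ and 159, 177, 157 and 157 in ND. Adcy9 in n_ZFP_a_Rpl measured 167, 173, 165 and 156 CPM in RZ, 114, 109 and 109 in RD, 211, 234, 199 and 208 in NZ and 204, 202, 184 and 195 in ND. For Adcy9, every RD value lay below every ND value in MG and n_ZFP_a_Rpl, while RZ lay above RD with no overlap in n_ZFP_a_Rpl and RZ and RD overlapped in MG. Adcy9 in hSyn had 137, 128, 130 and 141 CPM in RZ, 144, 141 and 137 in RD, 200, 199, 218 and 243 in NZ and 228, 214, 214, 238 and 249 in ND. Adcy9 in n_ZFP_n_Rpl measured 172, 161, 154 and 172 CPM in RZ, 136, 154, 140 and 138 in RD, 212, 227, 216 and 243 in NZ and 280, 228, 233 and 253 in ND. For Adcy9, every RD value lay below every ND value in hSyn and n_ZFP_n_Rpl, while RZ lay above RD with no overlap in n_ZFP_n_Rpl and RZ and RD overlapped in hSyn. Adcy9 was lower in RD than in ND in the 4 IPs, with log2 differences of -0.62 ± 0.10 in MG, -0.83 ± 0.05 in n_ZFP_a_Rpl, -0.70 ± 0.07 in hSyn and -0.81 ± 0.07 in n_ZFP_n_Rpl (highest edgeR adjusted p = 0.000321). Adcy9 in the Inputs gave RD minus ND log2 differences of -0.86 ± 0.04 in n_ZFP_a_Rpl, -0.58 ± 0.07 in hSyn and -0.73 ± 0.06 in n_ZFP_n_Rpl, past the threshold in all 3. Adcy9 had RD and ND values that did not overlap in 7 of the 7 fits. Adcy9 gave RZ minus RD log2 differences of 0.03 ± 0.10 in MG, 0.58 ± 0.05 in n_ZFP_a_Rpl, -0.07 ± 0.07 in hSyn and 0.22 ± 0.07 in n_ZFP_n_Rpl, which passed in n_ZFP_a_Rpl and n_ZFP_n_Rpl. Adcy9 gave NZ minus ND log2 differences of -0.15 ± 0.10 in MG, 0.12 ± 0.05 in n_ZFP_a_Rpl, -0.09 ± 0.06 in hSyn and -0.15 ± 0.07 in n_ZFP_n_Rpl, of which none passed. Adcy9 gave RZ minus ND log2 differences of -0.59 ± 0.10 in MG, -0.25 ± 0.05 in n_ZFP_a_Rpl, -0.77 ± 0.06 in hSyn and -0.59 ± 0.07 in n_ZFP_n_Rpl, which passed in all 4 IPs. Adcy9 lost its RZ minus RD call in n_ZFP_n_Rpl when library RZ 1, 2 or 4 or RD 1, 3 or 4 was left out (edgeR or DESeq2 adjusted p up to 0.0916 over the alternatives).

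The other cyclases were called in some of the fits. Adcy7, best known from immune and glial cells, was lower in RD, with log2 differences of -0.57 ± 0.13 in MG, -0.69 ± 0.19 in n_ZFP_a_Rpl and -1.03 ± 0.28 in hSyn, and in the n_ZFP_a_Rpl and n_ZFP_n_Rpl Inputs. Adcy2, a cyclase that G protein beta-gamma subunits stimulate, was lower in the MG IP (-0.33 ± 0.12, edgeR adjusted p = 0.0498), the hSyn IP (-0.29 ± 0.09) and the n_ZFP_a_Rpl Input. Adcy3, the cyclase of neuronal cilia, was lower in the n_ZFP_a_Rpl IP (-0.24 ± 0.06), the n_ZFP_n_Rpl IP (-0.15 ± 0.05) and the n_ZFP_a_Rpl Input. Adcy6, a close relative of Adcy5, was higher in both fractions of n_ZFP_a_Rpl (IP 0.20 ± 0.06), and Adcy8, which calcium stimulates, was higher in the n_ZFP_n_Rpl Input (0.36 ± 0.12). Adcy4 was tested in the Inputs only and Adcy10, the soluble cyclase that bicarbonate stimulates, in the n_ZFP_a_Rpl and n_ZFP_n_Rpl Inputs, and neither passed.

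Of the soluble guanylyl cyclase subunits, Gucy1a2 was lower in RD in all 4 IPs, and the subunits Gucy1a3 and Gucy1b3 were lower in most fits. Gucy1a2 encodes the alpha-2 subunit of the nitric oxide receptor (chr9:3532349-3905791, GRCm38.p6). Gucy1a2 in MG had 180, 168, 172 and 158 CPM in RZ, 147, 170, 154 and 176 in RD, 177, 169, 187 and 178 in NZ and 211, 209, 217 and 198 in ND. Gucy1a2 in n_ZFP_a_Rpl measured 293, 286, 280 and 275 CPM in RZ, 234, 214 and 209 in RD, 282, 289, 306 and 281 in NZ and 292, 268, 277 and 280 in ND. For Gucy1a2, every RD value lay below every ND value in MG and n_ZFP_a_Rpl, while RZ lay above RD with no overlap in n_ZFP_a_Rpl and RZ and RD overlapped in MG. Gucy1a2 in hSyn had 235, 230, 226 and 240 CPM in RZ, 266, 259 and 227 in RD, 267, 307, 306 and 300 in NZ and 278, 277, 310, 288 and 262 in ND. Gucy1a2 in n_ZFP_n_Rpl measured 327, 302, 330 and 320 CPM in RZ, 282, 311, 283 and 274 in RD, 356, 306, 346 and 319 in NZ and 360, 319, 330 and 285 in ND. For Gucy1a2, RD and ND overlapped in hSyn and n_ZFP_n_Rpl, while RZ and RD overlapped in hSyn and n_ZFP_n_Rpl. Gucy1a2 was lower in RD than in ND in the 4 IPs, with log2 differences of -0.37 ± 0.06 in MG, -0.35 ± 0.05 in n_ZFP_a_Rpl, -0.18 ± 0.06 in hSyn and -0.17 ± 0.07 in n_ZFP_n_Rpl (highest edgeR adjusted p = 0.0455). Gucy1a2 in the Inputs gave RD minus ND log2 differences of -0.45 ± 0.04 in n_ZFP_a_Rpl, -0.43 ± 0.09 in hSyn and -0.33 ± 0.05 in n_ZFP_n_Rpl, past the threshold in all 3. Gucy1a2 had RD and ND values that did not overlap in 5 of the 7 fits. Gucy1a2 gave RZ minus RD log2 differences of 0.07 ± 0.06 in MG, 0.37 ± 0.05 in n_ZFP_a_Rpl, -0.11 ± 0.07 in hSyn and 0.15 ± 0.07 in n_ZFP_n_Rpl, which passed in n_ZFP_a_Rpl. Gucy1a2 gave NZ minus ND log2 differences of -0.23 ± 0.06 in MG, 0.05 ± 0.04 in n_ZFP_a_Rpl, 0.06 ± 0.06 in hSyn and 0.04 ± 0.07 in n_ZFP_n_Rpl, which passed in MG. Gucy1a2 gave RZ minus ND log2 differences of -0.30 ± 0.06 in MG, 0.02 ± 0.04 in n_ZFP_a_Rpl, -0.28 ± 0.06 in hSyn and -0.02 ± 0.07 in n_ZFP_n_Rpl, which passed in MG and hSyn. Gucy1a2 lost its RD minus ND call in hSyn when library RD 3 or ND 2 was left out (edgeR or DESeq2 adjusted p up to 0.19 over the alternatives). Gucy1a2 lost its RD minus ND call in n_ZFP_n_Rpl when library RD 1, 3 or 4 or ND 1, 2 or 3 was left out and without the filter on low counts and with only the 2 groups in the fit (edgeR or DESeq2 adjusted p up to 0.156 over the alternatives). Gucy1a2 lost its NZ minus ND call in MG when library NZ 3 or 5 or ND 1, 2, 3 or 4 was left out and without the filter on low counts (edgeR or DESeq2 adjusted p up to 0.24 over the alternatives).

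Gucy1a3, the alpha-1 subunit, was lower in RD in MG (-0.29 ± 0.10), n_ZFP_a_Rpl (-0.38 ± 0.07) and hSyn (-0.21 ± 0.08) and in all 3 Inputs. In the n_ZFP_n_Rpl IP it gave -0.17 ± 0.16 and did not pass. Gucy1b3, the beta-1 subunit that binds the haem, was lower in n_ZFP_a_Rpl (-0.26 ± 0.08), hSyn (-0.22 ± 0.06) and n_ZFP_n_Rpl (-0.35 ± 0.06), and in the n_ZFP_a_Rpl and n_ZFP_n_Rpl Inputs. The 2 subunits together form a nitric oxide receptor. Gucy1b2 had at most 28 reads in a library and was higher in the n_ZFP_a_Rpl IP alone (1.29 ± 0.50, edgeR adjusted p = 0.0451).

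Among the membrane guanylyl cyclases, Gucy2c was lower and Gucy2f higher in RD in all 4 IPs. Gucy2c had 1 to 61 reads in a library and Gucy2f 4 to 341. Gucy2c encodes the receptor for guanylin and uroguanylin, best known from the intestine (chr6:136697284-136781742, GRCm38.p6). Gucy2c in MG had 0.0191, 0.366, 0.156 and 0.41 CPM in RZ, 0.0498, 0.198, 0.0676 and 0.368 in RD, 0.44, 0.563, 0.663 and 0.381 in NZ and 0.399, 0.361, 0.739 and 0.722 in ND. Gucy2c in n_ZFP_a_Rpl measured 0.412, 0.39, 0.467 and 0.5 CPM in RZ, 0.0633, 0.0836 and 0.105 in RD, 0.828, 0.971, 0.929 and 0.594 in NZ and 1.02, 1.08, 0.739 and 0.637 in ND. For Gucy2c, every RD value lay below every ND value in n_ZFP_a_Rpl and RD and ND overlapped in MG, while RZ lay above RD with no overlap in n_ZFP_a_Rpl and RZ and RD overlapped in MG. Gucy2c in hSyn had 0.688, 0.146, 0.114 and 0.129 CPM in RZ, 0.298, 0.149 and 0.159 in RD, 0.429, 0.758, 0.968 and 0.715 in NZ and 0.657, 1.01, 1.06, 0.711 and 0.817 in ND. Gucy2c in n_ZFP_n_Rpl measured 0.634, 1.03, 0.764 and 0.261 CPM in RZ, 0.43, 0.0967, 0.111 and 0.105 in RD, 0.719, 1.28, 1.76 and 1.32 in NZ and 1.55, 1.14, 0.88 and 1.29 in ND. For Gucy2c, every RD value lay below every ND value in hSyn and n_ZFP_n_Rpl, while RZ and RD overlapped in hSyn and n_ZFP_n_Rpl. Gucy2c was lower in RD than in ND in the 4 IPs, with log2 differences of -1.72 ± 0.63 in MG, -3.33 ± 0.32 in n_ZFP_a_Rpl, -2.07 ± 0.53 in hSyn and -2.71 ± 0.48 in n_ZFP_n_Rpl (highest edgeR adjusted p = 0.0455). Gucy2c in the Inputs gave RD minus ND log2 differences of -2.81 ± 0.55 in n_ZFP_a_Rpl, -2.35 ± 0.60 in hSyn and -2.29 ± 0.51 in n_ZFP_n_Rpl, past the threshold in all 3. Gucy2c had RD and ND values that did not overlap in 6 of the 7 fits. Gucy2c gave RZ minus RD log2 differences of 0.53 ± 0.65 in MG, 2.36 ± 0.33 in n_ZFP_a_Rpl, 0.41 ± 0.56 in hSyn and 1.85 ± 0.49 in n_ZFP_n_Rpl, which passed in n_ZFP_a_Rpl and n_ZFP_n_Rpl. Gucy2c gave NZ minus ND log2 differences of -0.11 ± 0.57 in MG, -0.06 ± 0.22 in n_ZFP_a_Rpl, -0.24 ± 0.43 in hSyn and 0.06 ± 0.40 in n_ZFP_n_Rpl, of which none passed. Gucy2c gave RZ minus ND log2 differences of -1.19 ± 0.59 in MG, -0.97 ± 0.23 in n_ZFP_a_Rpl, -1.65 ± 0.46 in hSyn and -0.85 ± 0.41 in n_ZFP_n_Rpl, which passed in n_ZFP_a_Rpl and hSyn. Gucy2c lost its RD minus ND call in MG when library RD 1, 2 or 3 or ND 1, 2, 3 or 4 was left out and without the filter on low counts (edgeR or DESeq2 adjusted p up to 0.121 over the alternatives). Gucy2c lost its RZ minus RD call in n_ZFP_n_Rpl when library RZ 2 or RD 2, 3 or 4 was left out (edgeR or DESeq2 adjusted p up to 0.0603 over the alternatives).

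Gucy2f encodes a guanylyl cyclase best known from photoreceptors (chrX:142079286-142197276, GRCm38.p6). Gucy2f in MG had 4.99, 2.42, 2.96 and 4.40 CPM in RZ, 4.08, 4.75, 5.76 and 4.03 in RD, 1.76, 1.41, 1.09 and 0.952 in NZ and 1.60, 0.837, 0.895 and 1.23 in ND. Gucy2f in n_ZFP_a_Rpl measured 4.08, 2.85, 3.65 and 3.38 CPM in RZ, 5.93, 6.50 and 4.60 in RD, 1.32, 1.41, 1.11 and 1.10 in NZ and 0.996, 0.99, 1.03 and 0.823 in ND. For Gucy2f, every RD value lay above every ND value in MG and n_ZFP_a_Rpl, while RZ lay below RD with no overlap in n_ZFP_a_Rpl and RZ and RD overlapped in MG. Gucy2f in hSyn had 0.76, 1.004, 1.05 and 0.866 CPM in RZ, 0.911, 1.31 and 0.848 in RD, 0.306, 0.246, 0.088 and 0.433 in NZ and 0.483, 0.456, 0.192, 0.523 and 0.259 in ND. Gucy2f in n_ZFP_n_Rpl measured 1.74, 1.45, 0.977 and 1.35 CPM in RZ, 0.908, 1.28, 1.59 and 1.39 in RD, 0.347, 0.374, 0.41 and 0.297 in NZ and 0.279, 0.471, 0.324 and 0.414 in ND. For Gucy2f, every RD value lay above every ND value in hSyn and n_ZFP_n_Rpl, while RZ and RD overlapped in hSyn and n_ZFP_n_Rpl. Gucy2f was higher in RD than in ND in the 4 IPs, with log2 differences of 2.03 ± 0.27 in MG, 2.56 ± 0.16 in n_ZFP_a_Rpl, 1.42 ± 0.37 in hSyn and 1.80 ± 0.24 in n_ZFP_n_Rpl (highest edgeR adjusted p = 0.00375). Gucy2f in the Inputs gave RD minus ND log2 differences of 1.12 ± 0.21 in n_ZFP_a_Rpl, 1.09 ± 0.19 in hSyn and 1.10 ± 0.12 in n_ZFP_n_Rpl, past the threshold in all 3. Gucy2f had RD and ND values that did not overlap in 7 of the 7 fits. Gucy2f gave RZ minus RD log2 differences of -0.34 ± 0.25 in MG, -0.70 ± 0.15 in n_ZFP_a_Rpl, -0.15 ± 0.37 in hSyn and 0.09 ± 0.21 in n_ZFP_n_Rpl, which passed in n_ZFP_a_Rpl. Gucy2f gave NZ minus ND log2 differences of 0.19 ± 0.27 in MG, 0.36 ± 0.16 in n_ZFP_a_Rpl, -0.50 ± 0.38 in hSyn and -0.06 ± 0.27 in n_ZFP_n_Rpl, of which none passed. Gucy2f gave RZ minus ND log2 differences of 1.69 ± 0.27 in MG, 1.86 ± 0.15 in n_ZFP_a_Rpl, 1.27 ± 0.34 in hSyn and 1.89 ± 0.24 in n_ZFP_n_Rpl, which passed in all 4 IPs.

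Gucy2e, a further photoreceptor cyclase in mice, was lower in RD in the n_ZFP_a_Rpl IP (-0.59 ± 0.13) and in all 3 Inputs, where it gave -0.82 ± 0.17 in n_ZFP_a_Rpl, -0.74 ± 0.27 in hSyn and -0.67 ± 0.15 in n_ZFP_n_Rpl. Gucy2g was lower in the n_ZFP_a_Rpl IP (-1.32 ± 0.46), the n_ZFP_n_Rpl IP (-2.37 ± 0.50) and the n_ZFP_n_Rpl Input (-1.33 ± 0.51). Gucy2d, with at most 5 reads in any library, was not tested.

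Phosphodiesterases formed the largest class, and 7 of the 19 tested in all 4 IPs (Pde10a, Pde1b, Pde1c, Pde2a, Pde3a, Pde7b and Pde8b) were lower in RD in each of them, against 11.2% of all genes. Pde10a had the lowest RD minus ND difference of any tested phosphodiesterase in each IP, and in n_ZFP_a_Rpl and n_ZFP_n_Rpl it was higher in RZ than in RD without reaching ND. Pde10a encodes an enzyme that hydrolyses both cyclic nucleotides and is concentrated in striatal projection neurons (chr17:8525187-8986648, GRCm38.p6). Pde10a in MG had 613, 571, 476 and 481 CPM in RZ, 478, 492, 454 and 622 in RD, 1236, 1700, 2228 and 1819 in NZ and 2356, 2471, 2625 and 2547 in ND. Pde10a in n_ZFP_a_Rpl measured 1755, 1963, 1734 and 1791 CPM in RZ, 737, 532 and 672 in RD, 2819, 3421, 2615 and 2868 in NZ and 3112, 3080, 2635 and 2645 in ND. For Pde10a, every RD value lay below every ND value in MG and n_ZFP_a_Rpl, while RZ lay above RD with no overlap in n_ZFP_a_Rpl and RZ and RD overlapped in MG. Pde10a in hSyn had 940, 1000, 1103 and 1135 CPM in RZ, 1151, 1065 and 1003 in RD, 4356, 4113, 4558 and 4886 in NZ and 3810, 4670, 4955, 4690 and 4230 in ND. Pde10a in n_ZFP_n_Rpl measured 1895, 1341, 1165 and 1139 CPM in RZ, 705, 685, 879 and 718 in RD, 2453, 1846, 2217 and 2598 in NZ and 2551, 2818, 3709 and 3479 in ND. For Pde10a, every RD value lay below every ND value in hSyn and n_ZFP_n_Rpl, while RZ lay above RD with no overlap in n_ZFP_n_Rpl and RZ and RD overlapped in hSyn. Pde10a was lower in RD than in ND in the 4 IPs, with log2 differences of -2.29 ± 0.15 in MG, -2.15 ± 0.12 in n_ZFP_a_Rpl, -2.06 ± 0.09 in hSyn and -2.07 ± 0.17 in n_ZFP_n_Rpl (highest edgeR adjusted p = 2.1e-07). Pde10a in the Inputs gave RD minus ND log2 differences of -2.12 ± 0.06 in n_ZFP_a_Rpl, -2.10 ± 0.12 in hSyn and -2.37 ± 0.15 in n_ZFP_n_Rpl, past the threshold in all 3. Pde10a had RD and ND values that did not overlap in 7 of the 7 fits. Pde10a gave RZ minus RD log2 differences of 0.07 ± 0.15 in MG, 1.49 ± 0.11 in n_ZFP_a_Rpl, -0.04 ± 0.09 in hSyn and 0.89 ± 0.17 in n_ZFP_n_Rpl, which passed in n_ZFP_a_Rpl and n_ZFP_n_Rpl. Pde10a gave NZ minus ND log2 differences of -0.52 ± 0.15 in MG, 0.03 ± 0.10 in n_ZFP_a_Rpl, 0.00 ± 0.08 in hSyn and -0.46 ± 0.16 in n_ZFP_n_Rpl, which passed in MG. Pde10a gave RZ minus ND log2 differences of -2.22 ± 0.15 in MG, -0.66 ± 0.10 in n_ZFP_a_Rpl, -2.10 ± 0.08 in hSyn and -1.18 ± 0.17 in n_ZFP_n_Rpl, which passed in all 4 IPs. Pde10a lost its NZ minus ND call in MG when library NZ 3 or 5 or ND 1, 2, 3 or 4 was left out and without the filter on low counts and with only the 2 groups in the fit (edgeR or DESeq2 adjusted p up to 0.216 over the alternatives).

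Pde1b encodes a phosphodiesterase activated by calcium and calmodulin that is abundant in the striatum (chr15:103503034-103530056, GRCm38.p6). Pde1b in MG had 548, 643, 556 and 514 CPM in RZ, 467, 523, 450 and 649 in RD, 701, 1015, 1352 and 1074 in NZ and 1258, 1325, 1266 and 1278 in ND. Pde1b in n_ZFP_a_Rpl measured 1122, 1271, 1129 and 1096 CPM in RZ, 644, 518 and 631 in RD, 1492, 1830, 1320 and 1460 in NZ and 1674, 1616, 1406 and 1569 in ND. For Pde1b, every RD value lay below every ND value in MG and n_ZFP_a_Rpl, while RZ lay above RD with no overlap in n_ZFP_a_Rpl and RZ and RD overlapped in MG. Pde1b in hSyn had 811, 798, 855 and 961 CPM in RZ, 884, 904 and 901 in RD, 1895, 1918, 2112 and 2073 in NZ and 1904, 2119, 2151, 1955 and 1935 in ND. Pde1b in n_ZFP_n_Rpl measured 1309, 938, 862 and 798 CPM in RZ, 703, 670, 899 and 756 in RD, 1591, 1122, 1317 and 1441 in NZ and 1429, 1717, 2303 and 2132 in ND. For Pde1b, every RD value lay below every ND value in hSyn and n_ZFP_n_Rpl, while RZ and RD overlapped in hSyn and n_ZFP_n_Rpl. Pde1b was lower in RD than in ND in the 4 IPs, with log2 differences of -1.30 ± 0.16 in MG, -1.39 ± 0.11 in n_ZFP_a_Rpl, -1.17 ± 0.07 in hSyn and -1.32 ± 0.17 in n_ZFP_n_Rpl (highest edgeR adjusted p = 1.84e-05). Pde1b in the Inputs gave RD minus ND log2 differences of -1.40 ± 0.06 in n_ZFP_a_Rpl, -1.11 ± 0.08 in hSyn and -1.51 ± 0.15 in n_ZFP_n_Rpl, past the threshold in all 3. Pde1b had RD and ND values that did not overlap in 7 of the 7 fits. Pde1b gave RZ minus RD log2 differences of 0.11 ± 0.15 in MG, 0.95 ± 0.10 in n_ZFP_a_Rpl, -0.07 ± 0.07 in hSyn and 0.37 ± 0.17 in n_ZFP_n_Rpl, which passed in n_ZFP_a_Rpl. Pde1b gave NZ minus ND log2 differences of -0.31 ± 0.15 in MG, -0.04 ± 0.09 in n_ZFP_a_Rpl, -0.01 ± 0.06 in hSyn and -0.47 ± 0.17 in n_ZFP_n_Rpl, of which none passed. Pde1b gave RZ minus ND log2 differences of -1.18 ± 0.16 in MG, -0.44 ± 0.09 in n_ZFP_a_Rpl, -1.23 ± 0.06 in hSyn and -0.96 ± 0.17 in n_ZFP_n_Rpl, which passed in all 4 IPs.

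Pde1c encodes another phosphodiesterase activated by calcium and calmodulin, acting on both nucleotides (chr6:56069798-56652510, GRCm38.p6). Pde1c in MG had 54.2, 50.04, 43.2 and 41.5 CPM in RZ, 54.7, 45.8, 48.7 and 55.00 in RD, 65.03, 55.7, 67.9 and 62.7 in NZ and 83.5, 87.04, 67.8 and 83.6 in ND. Pde1c in n_ZFP_a_Rpl measured 62.02, 61.7, 58.9 and 70.1 CPM in RZ, 51.8, 44.4 and 46.7 in RD, 93.4, 76.98, 74.6 and 79.9 in NZ and 74.96, 71.9, 71.2 and 82.99 in ND. For Pde1c, every RD value lay below every ND value in MG and n_ZFP_a_Rpl, while RZ lay above RD with no overlap in n_ZFP_a_Rpl and RZ and RD overlapped in MG. Pde1c in hSyn had 42.5, 39.2, 37.01 and 40.01 CPM in RZ, 38.4, 38.7 and 39.6 in RD, 108, 120, 107 and 95.5 in NZ and 104, 145, 97.8, 111 and 107 in ND. Pde1c in n_ZFP_n_Rpl measured 46.3, 37.02, 41.00 and 30.5 CPM in RZ, 31.4, 28.4, 32.3 and 33.6 in RD, 59.4, 50.05, 67.8 and 60.7 in NZ and 52.05, 77.5, 114 and 82.7 in ND. For Pde1c, every RD value lay below every ND value in hSyn and n_ZFP_n_Rpl, while RZ and RD overlapped in hSyn and n_ZFP_n_Rpl. Pde1c was lower in RD than in ND in the 4 IPs, with log2 differences of -0.66 ± 0.10 in MG, -0.66 ± 0.08 in n_ZFP_a_Rpl, -1.54 ± 0.11 in hSyn and -1.38 ± 0.19 in n_ZFP_n_Rpl (highest edgeR adjusted p = 0.000132). Pde1c in the Inputs gave RD minus ND log2 differences of -0.59 ± 0.07 in n_ZFP_a_Rpl, -1.13 ± 0.10 in hSyn and -0.98 ± 0.17 in n_ZFP_n_Rpl, past the threshold in all 3. Pde1c had RD and ND values that did not overlap in 7 of the 7 fits. Pde1c gave RZ minus RD log2 differences of -0.11 ± 0.10 in MG, 0.41 ± 0.08 in n_ZFP_a_Rpl, 0.03 ± 0.11 in hSyn and 0.30 ± 0.18 in n_ZFP_n_Rpl, which passed in n_ZFP_a_Rpl. Pde1c gave NZ minus ND log2 differences of -0.36 ± 0.10 in MG, 0.11 ± 0.08 in n_ZFP_a_Rpl, -0.07 ± 0.09 in hSyn and -0.46 ± 0.18 in n_ZFP_n_Rpl, which passed in MG. Pde1c gave RZ minus ND log2 differences of -0.77 ± 0.10 in MG, -0.25 ± 0.08 in n_ZFP_a_Rpl, -1.51 ± 0.10 in hSyn and -1.08 ± 0.18 in n_ZFP_n_Rpl, which passed in all 4 IPs. Pde1c lost its NZ minus ND call in MG when library NZ 3 or 5 or ND 1, 2, 3 or 4 was left out and without the filter on low counts (edgeR or DESeq2 adjusted p up to 0.221 over the alternatives).

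Pde2a encodes a phosphodiesterase that cGMP stimulates (chr7:101421691-101512829, GRCm38.p6). Pde2a in MG had 247, 326, 336 and 312 CPM in RZ, 227, 254, 225 and 285 in RD, 250, 418, 563 and 419 in NZ and 501, 435, 470 and 450 in ND. Pde2a in n_ZFP_a_Rpl measured 594, 582, 560 and 593 CPM in RZ, 350, 262 and 363 in RD, 615, 813, 638 and 734 in NZ and 739, 622, 583 and 614 in ND. For Pde2a, every RD value lay below every ND value in MG and n_ZFP_a_Rpl, while RZ lay above RD with no overlap in n_ZFP_a_Rpl and RZ and RD overlapped in MG. Pde2a in hSyn had 518, 460, 455 and 485 CPM in RZ, 482, 454 and 576 in RD, 662, 787, 840 and 715 in NZ and 746, 696, 794, 646 and 743 in ND. Pde2a in n_ZFP_n_Rpl measured 862, 580, 615 and 528 CPM in RZ, 521, 525, 502 and 500 in RD, 807, 615, 719 and 682 in NZ and 721, 819, 893 and 965 in ND. For Pde2a, every RD value lay below every ND value in hSyn and n_ZFP_n_Rpl, while RZ lay above RD with no overlap in n_ZFP_n_Rpl and RZ and RD overlapped in hSyn. Pde2a was lower in RD than in ND in the 4 IPs, with log2 differences of -0.91 ± 0.17 in MG, -0.98 ± 0.12 in n_ZFP_a_Rpl, -0.53 ± 0.09 in hSyn and -0.73 ± 0.13 in n_ZFP_n_Rpl (highest edgeR adjusted p = 0.000926). Pde2a in the Inputs gave RD minus ND log2 differences of -0.86 ± 0.08 in n_ZFP_a_Rpl, -0.40 ± 0.10 in hSyn and -0.75 ± 0.10 in n_ZFP_n_Rpl, past the threshold in all 3. Pde2a had RD and ND values that did not overlap in 6 of the 7 fits. Pde2a gave RZ minus RD log2 differences of 0.30 ± 0.17 in MG, 0.84 ± 0.12 in n_ZFP_a_Rpl, -0.07 ± 0.09 in hSyn and 0.34 ± 0.13 in n_ZFP_n_Rpl, which passed in n_ZFP_a_Rpl. Pde2a gave NZ minus ND log2 differences of -0.17 ± 0.17 in MG, 0.13 ± 0.11 in n_ZFP_a_Rpl, 0.05 ± 0.08 in hSyn and -0.27 ± 0.13 in n_ZFP_n_Rpl, of which none passed. Pde2a gave RZ minus ND log2 differences of -0.60 ± 0.17 in MG, -0.14 ± 0.11 in n_ZFP_a_Rpl, -0.60 ± 0.08 in hSyn and -0.39 ± 0.13 in n_ZFP_n_Rpl, which passed in MG, hSyn and n_ZFP_n_Rpl.

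Pde3a encodes a phosphodiesterase that hydrolyses cAMP and is inhibited by cGMP (chr6:141249269-141506862, GRCm38.p6). Pde3a in MG had 21.9, 16.1, 18.1 and 21.1 CPM in RZ, 21.8, 16.4, 17.1 and 15.7 in RD, 27.3, 22.9, 22.02 and 24.99 in NZ and 26.6, 22.2, 26.9 and 24.98 in ND. Pde3a in n_ZFP_a_Rpl measured 19.4, 19.99, 20.9 and 20.3 CPM in RZ, 14.1, 14.6 and 14.7 in RD, 24.9, 21.1, 22.4 and 20.6 in NZ and 19.6, 20.7, 18.5 and 17.6 in ND. For Pde3a, every RD value lay below every ND value in MG and n_ZFP_a_Rpl, while RZ lay above RD with no overlap in n_ZFP_a_Rpl and RZ and RD overlapped in MG. Pde3a in hSyn had 7.40, 7.45, 9.28 and 8.69 CPM in RZ, 8.26, 7.12 and 8.48 in RD, 10.7, 11.4, 10.6 and 11.98 in NZ and 12.1, 13.1, 11.7, 12.4 and 11.1 in ND. Pde3a in n_ZFP_n_Rpl measured 10.8, 10.2, 10.4 and 8.58 CPM in RZ, 6.96, 6.28, 8.86 and 8.34 in RD, 11.6, 9.51, 10.5 and 11.7 in NZ and 7.69, 9.90, 10.9 and 9.96 in ND. For Pde3a, every RD value lay below every ND value in hSyn and RD and ND overlapped in n_ZFP_n_Rpl, while RZ and RD overlapped in hSyn and n_ZFP_n_Rpl. Pde3a was lower in RD than in ND in the 4 IPs, with log2 differences of -0.51 ± 0.12 in MG, -0.40 ± 0.07 in n_ZFP_a_Rpl, -0.60 ± 0.10 in hSyn and -0.33 ± 0.13 in n_ZFP_n_Rpl (highest edgeR adjusted p = 0.0351). Pde3a in the Inputs gave RD minus ND log2 differences of -0.17 ± 0.08 in n_ZFP_a_Rpl, -0.14 ± 0.10 in hSyn and -0.22 ± 0.09 in n_ZFP_n_Rpl, past the threshold in none of the 3. Pde3a had RD and ND values that did not overlap in 3 of the 7 fits. Pde3a gave RZ minus RD log2 differences of 0.12 ± 0.12 in MG, 0.48 ± 0.07 in n_ZFP_a_Rpl, 0.05 ± 0.10 in hSyn and 0.39 ± 0.12 in n_ZFP_n_Rpl, which passed in n_ZFP_a_Rpl and n_ZFP_n_Rpl. Pde3a gave NZ minus ND log2 differences of -0.05 ± 0.12 in MG, 0.22 ± 0.06 in n_ZFP_a_Rpl, -0.11 ± 0.09 in hSyn and 0.17 ± 0.12 in n_ZFP_n_Rpl, of which none passed. Pde3a gave RZ minus ND log2 differences of -0.39 ± 0.12 in MG, 0.08 ± 0.06 in n_ZFP_a_Rpl, -0.56 ± 0.09 in hSyn and 0.06 ± 0.12 in n_ZFP_n_Rpl, which passed in MG and hSyn. Pde3a lost its RD minus ND call in n_ZFP_n_Rpl when library RD 1 or 2 or ND 2, 3 or 4 was left out and with only the 2 groups in the fit (edgeR or DESeq2 adjusted p up to 0.113 over the alternatives). Pde3a lost its RZ minus RD call in n_ZFP_n_Rpl when library RZ 1, 2 or 3 or RD 1 or 2 was left out and with only the 2 groups in the fit (edgeR or DESeq2 adjusted p up to 0.12 over the alternatives).

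Pde7b stood apart from Pde10a and Pde1b in that RZ did not differ from RD past the threshold in any IP, while NZ was lower than ND in 3 of the 4. Pde7b encodes a phosphodiesterase specific to cAMP that is expressed in the striatum (chr10:20397052-20725078, GRCm38.p6). Pde7b in MG had 160, 138, 131 and 123 CPM in RZ, 132, 153, 136 and 176 in RD, 176, 200, 264 and 215 in NZ and 304, 313, 312 and 311 in ND. Pde7b in n_ZFP_a_Rpl measured 135, 154, 131 and 143 CPM in RZ, 150, 119 and 137 in RD, 186, 207, 158 and 188 in NZ and 280, 282, 257 and 268 in ND. For Pde7b, every RD value lay below every ND value in MG and n_ZFP_a_Rpl, while RZ and RD overlapped in MG and n_ZFP_a_Rpl. Pde7b in hSyn had 270, 261, 260 and 286 CPM in RZ, 308, 278 and 294 in RD, 559, 608, 599 and 586 in NZ and 514, 630, 616, 590 and 559 in ND. Pde7b in n_ZFP_n_Rpl measured 216, 162, 154 and 132 CPM in RZ, 171, 166, 205 and 199 in RD, 255, 196, 240 and 259 in NZ and 292, 334, 469 and 432 in ND. For Pde7b, every RD value lay below every ND value in hSyn and n_ZFP_n_Rpl, while RZ and RD overlapped in hSyn and n_ZFP_n_Rpl. Pde7b was lower in RD than in ND in the 4 IPs, with log2 differences of -1.06 ± 0.12 in MG, -1.005 ± 0.09 in n_ZFP_a_Rpl, -0.99 ± 0.06 in hSyn and -1.04 ± 0.16 in n_ZFP_n_Rpl (highest edgeR adjusted p = 8.78e-05). Pde7b in the Inputs gave RD minus ND log2 differences of -0.96 ± 0.05 in n_ZFP_a_Rpl, -1.09 ± 0.09 in hSyn and -1.26 ± 0.14 in n_ZFP_n_Rpl, past the threshold in all 3. Pde7b had RD and ND values that did not overlap in 7 of the 7 fits. Pde7b gave RZ minus RD log2 differences of -0.11 ± 0.12 in MG, 0.06 ± 0.09 in n_ZFP_a_Rpl, -0.12 ± 0.06 in hSyn and -0.16 ± 0.16 in n_ZFP_n_Rpl, of which none passed. Pde7b gave NZ minus ND log2 differences of -0.54 ± 0.12 in MG, -0.56 ± 0.08 in n_ZFP_a_Rpl, 0.02 ± 0.06 in hSyn and -0.69 ± 0.16 in n_ZFP_n_Rpl, which passed in MG, n_ZFP_a_Rpl and n_ZFP_n_Rpl. Pde7b gave RZ minus ND log2 differences of -1.17 ± 0.12 in MG, -0.95 ± 0.08 in n_ZFP_a_Rpl, -1.11 ± 0.06 in hSyn and -1.20 ± 0.16 in n_ZFP_n_Rpl, which passed in all 4 IPs. Pde7b lost its NZ minus ND call in MG when library NZ 3 or 5 or ND 1, 2 or 3 was left out (edgeR or DESeq2 adjusted p up to 0.192 over the alternatives). Pde7b lost its NZ minus ND call in n_ZFP_n_Rpl when library NZ 2 or 3 or ND 3 or 4 was left out and with only the 2 groups in the fit (edgeR or DESeq2 adjusted p up to 0.0676 over the alternatives).

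Pde8b encodes a high-affinity phosphodiesterase specific to cAMP (chr13:95024105-95250401, GRCm38.p6). Pde8b in MG had 152, 146, 135 and 135 CPM in RZ, 134, 154, 134 and 159 in RD, 137, 147, 172 and 149 in NZ and 172, 180, 178 and 168 in ND. Pde8b in n_ZFP_a_Rpl measured 176, 181, 162 and 167 CPM in RZ, 149, 131 and 142 in RD, 176, 194, 162 and 181 in NZ and 178, 176, 163 and 192 in ND. For Pde8b, every RD value lay below every ND value in MG and n_ZFP_a_Rpl, while RZ lay above RD with no overlap in n_ZFP_a_Rpl and RZ and RD overlapped in MG. Pde8b in hSyn had 226, 213, 217 and 221 CPM in RZ, 210, 216 and 233 in RD, 283, 301, 262 and 274 in NZ and 278, 302, 291, 267 and 282 in ND. Pde8b in n_ZFP_n_Rpl measured 197, 171, 168 and 161 CPM in RZ, 156, 154, 170 and 160 in RD, 189, 164, 175 and 189 in NZ and 201, 196, 234 and 223 in ND. For Pde8b, every RD value lay below every ND value in hSyn and n_ZFP_n_Rpl, while RZ and RD overlapped in hSyn and n_ZFP_n_Rpl. Pde8b was lower in RD than in ND in the 4 IPs, with log2 differences of -0.26 ± 0.08 in MG, -0.33 ± 0.07 in n_ZFP_a_Rpl, -0.37 ± 0.05 in hSyn and -0.42 ± 0.07 in n_ZFP_n_Rpl (highest edgeR adjusted p = 0.014). Pde8b in the Inputs gave RD minus ND log2 differences of -0.43 ± 0.04 in n_ZFP_a_Rpl, -0.34 ± 0.06 in hSyn and -0.55 ± 0.05 in n_ZFP_n_Rpl, past the threshold in all 3. Pde8b had RD and ND values that did not overlap in 7 of the 7 fits. Pde8b gave RZ minus RD log2 differences of -0.03 ± 0.08 in MG, 0.29 ± 0.07 in n_ZFP_a_Rpl, 0.00 ± 0.05 in hSyn and 0.12 ± 0.07 in n_ZFP_n_Rpl, which passed in n_ZFP_a_Rpl. Pde8b gave NZ minus ND log2 differences of -0.21 ± 0.08 in MG, 0.01 ± 0.06 in n_ZFP_a_Rpl, -0.02 ± 0.05 in hSyn and -0.25 ± 0.07 in n_ZFP_n_Rpl, which passed in n_ZFP_n_Rpl. Pde8b gave RZ minus ND log2 differences of -0.30 ± 0.08 in MG, -0.05 ± 0.06 in n_ZFP_a_Rpl, -0.37 ± 0.05 in hSyn and -0.29 ± 0.07 in n_ZFP_n_Rpl, which passed in MG, hSyn and n_ZFP_n_Rpl. Pde8b lost its NZ minus ND call in n_ZFP_n_Rpl when library NZ 2, 3 or 4 or ND 3 or 4 was left out and without the filter on low counts and with only the 2 groups in the fit (edgeR or DESeq2 adjusted p up to 0.125 over the alternatives).

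Pde4a, of the family that is specific to cAMP and inhibited by rolipram, was lower in RD in MG (-0.49 ± 0.09), n_ZFP_a_Rpl (-0.66 ± 0.07) and hSyn (-0.19 ± 0.07) and in all 3 Inputs, and in the n_ZFP_n_Rpl IP it gave -0.21 ± 0.13 and did not pass. Pde4d, of the same family, went the other way, higher in hSyn (0.39 ± 0.09) and n_ZFP_n_Rpl (0.27 ± 0.05) and in all 3 Inputs. Pde4b was lower in the n_ZFP_a_Rpl and n_ZFP_n_Rpl Inputs, and Pde4c was higher in the n_ZFP_n_Rpl Input (0.88 ± 0.28). So members of this family were called in opposite directions. Pde7a, the paralog of Pde7b, was lower in MG (-0.18 ± 0.06), hSyn (-0.28 ± 0.08) and n_ZFP_n_Rpl (-0.21 ± 0.07). Pde8a, the paralog of Pde8b, was lower in all 3 Inputs, with -0.32 ± 0.08 in n_ZFP_a_Rpl, -0.69 ± 0.16 in hSyn and -0.71 ± 0.10 in n_ZFP_n_Rpl, and was called in none of the 4 IPs. Pde9a, specific to cGMP, was lower in both fractions of n_ZFP_n_Rpl (IP -0.57 ± 0.17). Pde3b, the paralog of Pde3a, was higher in hSyn (0.37 ± 0.10) and in both fractions of n_ZFP_a_Rpl (IP 0.26 ± 0.08). Single higher calls went to Pde11a in MG (0.57 ± 0.17) and Pde1a in the hSyn Input (0.47 ± 0.16), while Pde6d was higher in MG (0.18 ± 0.07), hSyn (0.21 ± 0.07) and n_ZFP_n_Rpl (0.20 ± 0.06). Pde5a, specific to cGMP, passed in no fit, with -0.29 ± 0.16 in MG, 0.09 ± 0.14 in n_ZFP_a_Rpl, -0.21 ± 0.15 in hSyn and -0.44 ± 0.36 in n_ZFP_n_Rpl.

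Among the kinase genes, the PKA subunits that passed were mostly higher in RD, and Prkg2 was lower. Prkar1a encodes the RI-alpha regulatory subunit, which holds the PKA catalytic subunit inactive until cAMP binds (chr11:109649023-109669663, GRCm38.p6). Prkar1a in MG had 906, 871, 890 and 842 CPM in RZ, 874, 951, 890 and 978 in RD, 759, 722, 775 and 758 in NZ and 886, 791, 770 and 781 in ND. Prkar1a in n_ZFP_a_Rpl measured 861, 829, 832 and 856 CPM in RZ, 894, 891 and 860 in RD, 767, 751, 771 and 765 in NZ and 770, 758, 761 and 775 in ND. For Prkar1a, every RD value lay above every ND value in n_ZFP_a_Rpl and RD and ND overlapped in MG, while RZ and RD overlapped in MG and n_ZFP_a_Rpl. Prkar1a in hSyn had 864, 851, 854 and 868 CPM in RZ, 893, 923 and 868 in RD, 750, 780, 756 and 783 in NZ and 740, 787, 794, 748 and 756 in ND. Prkar1a in n_ZFP_n_Rpl measured 788, 808, 849 and 808 CPM in RZ, 846, 862, 856 and 848 in RD, 791, 794, 822 and 752 in NZ and 785, 753, 764 and 759 in ND. For Prkar1a, every RD value lay above every ND value in hSyn and n_ZFP_n_Rpl, while RZ lay below RD with no overlap in hSyn and RZ and RD overlapped in n_ZFP_n_Rpl. Prkar1a was higher in RD than in ND in the 4 IPs, with log2 differences of 0.19 ± 0.06 in MG, 0.20 ± 0.03 in n_ZFP_a_Rpl, 0.23 ± 0.04 in hSyn and 0.16 ± 0.04 in n_ZFP_n_Rpl (highest edgeR adjusted p = 0.0227). Prkar1a in the Inputs gave RD minus ND log2 differences of 0.20 ± 0.03 in n_ZFP_a_Rpl, 0.31 ± 0.06 in hSyn and 0.16 ± 0.04 in n_ZFP_n_Rpl, past the threshold in all 3. Prkar1a had RD and ND values that did not overlap in 6 of the 7 fits. Prkar1a gave RZ minus RD log2 differences of -0.07 ± 0.06 in MG, -0.06 ± 0.03 in n_ZFP_a_Rpl, -0.06 ± 0.04 in hSyn and -0.07 ± 0.04 in n_ZFP_n_Rpl, of which none passed. Prkar1a gave NZ minus ND log2 differences of -0.10 ± 0.06 in MG, 0.00 ± 0.03 in n_ZFP_a_Rpl, 0.00 ± 0.04 in hSyn and 0.05 ± 0.04 in n_ZFP_n_Rpl, of which none passed. Prkar1a gave RZ minus ND log2 differences of 0.12 ± 0.06 in MG, 0.14 ± 0.03 in n_ZFP_a_Rpl, 0.17 ± 0.04 in hSyn and 0.09 ± 0.04 in n_ZFP_n_Rpl, which passed in n_ZFP_a_Rpl and hSyn. Prkar1a lost its RD minus ND call in MG when library RD 2 or 4 or ND 2, 3 or 4 was left out and with only the 2 groups in the fit (edgeR or DESeq2 adjusted p up to 0.0713 over the alternatives).

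Prkar2a, the RII-alpha subunit, was higher in n_ZFP_a_Rpl (0.15 ± 0.05), hSyn (0.49 ± 0.06) and n_ZFP_n_Rpl (0.30 ± 0.08) and in all 3 Inputs. Prkar1b, the RI-beta subunit of neurons, was higher in the hSyn IP (0.36 ± 0.08) and in the hSyn and n_ZFP_a_Rpl Inputs. Prkar2b, the RII-beta subunit that is abundant in the striatum, went lower in the n_ZFP_a_Rpl Input (-0.14 ± 0.04) and the n_ZFP_n_Rpl Input (-0.27 ± 0.08) and was called in none of the 4 IPs. Of the catalytic subunits, Prkacb was higher in MG (0.27 ± 0.08) and hSyn (0.23 ± 0.05) and in all 3 Inputs, and Prkaca was higher in the n_ZFP_n_Rpl Input alone (0.16 ± 0.06).

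Prkg2 encodes the membrane-anchored type II cGMP-dependent kinase (chr5:98929773-99037375, GRCm38.p6). Prkg2 in MG had 6.42, 6.94, 7.77 and 6.10 CPM in RZ, 5.96, 10.6, 7.36 and 9.59 in RD, 11.5, 9.60, 10.3 and 9.76 in NZ and 14.2, 11.3, 11.6 and 10.1 in ND. Prkg2 in n_ZFP_a_Rpl measured 7.32, 7.16, 9.003 and 9.62 CPM in RZ, 6.75, 6.75 and 6.49 in RD, 10.4, 9.51, 10.6 and 11.4 in NZ and 9.28, 9.07, 11.4 and 11.9 in ND. For Prkg2, every RD value lay below every ND value in n_ZFP_a_Rpl and RD and ND overlapped in MG, while RZ lay above RD with no overlap in n_ZFP_a_Rpl and RZ and RD overlapped in MG. Prkg2 in hSyn had 7.42, 8.74, 8.09 and 7.66 CPM in RZ, 7.64, 8.13 and 6.66 in RD, 10.9, 9.78, 13.2 and 10.9 in NZ and 13.5, 11.9, 10.3, 11.99 and 12.9 in ND. Prkg2 in n_ZFP_n_Rpl measured 8.18, 10.3, 10.2 and 9.64 CPM in RZ, 7.67, 5.58, 6.76 and 7.39 in RD, 11.6, 12.6, 11.8 and 12.5 in NZ and 8.86, 11.2, 11.2 and 9.91 in ND. For Prkg2, every RD value lay below every ND value in hSyn and n_ZFP_n_Rpl, while RZ lay above RD with no overlap in n_ZFP_n_Rpl and RZ and RD overlapped in hSyn. Prkg2 was lower in RD than in ND in the 4 IPs, with log2 differences of -0.49 ± 0.15 in MG, -0.65 ± 0.12 in n_ZFP_a_Rpl, -0.70 ± 0.11 in hSyn and -0.58 ± 0.11 in n_ZFP_n_Rpl (highest edgeR adjusted p = 0.0218). Prkg2 in the Inputs gave RD minus ND log2 differences of -0.44 ± 0.10 in n_ZFP_a_Rpl, -0.51 ± 0.11 in hSyn and -0.25 ± 0.12 in n_ZFP_n_Rpl, past the threshold in n_ZFP_a_Rpl and hSyn only. Prkg2 had RD and ND values that did not overlap in 5 of the 7 fits. Prkg2 gave RZ minus RD log2 differences of -0.30 ± 0.15 in MG, 0.31 ± 0.12 in n_ZFP_a_Rpl, 0.09 ± 0.11 in hSyn and 0.49 ± 0.11 in n_ZFP_n_Rpl, which passed in n_ZFP_n_Rpl. Prkg2 gave NZ minus ND log2 differences of -0.19 ± 0.15 in MG, 0.01 ± 0.11 in n_ZFP_a_Rpl, -0.11 ± 0.10 in hSyn and 0.24 ± 0.11 in n_ZFP_n_Rpl, of which none passed. Prkg2 gave RZ minus ND log2 differences of -0.79 ± 0.15 in MG, -0.33 ± 0.11 in n_ZFP_a_Rpl, -0.60 ± 0.10 in hSyn and -0.10 ± 0.11 in n_ZFP_n_Rpl, which passed in MG, n_ZFP_a_Rpl and hSyn. Prkg2 lost its RD minus ND call in MG when library RD 1 or 3 or ND 1 was left out (edgeR or DESeq2 adjusted p up to 0.0784 over the alternatives). Prkg1, the type I kinase, passed in no fit, with RD minus ND differences of -0.01 ± 0.17 in MG, -0.07 ± 0.11 in n_ZFP_a_Rpl, -0.21 ± 0.10 in hSyn and -0.13 ± 0.11 in n_ZFP_n_Rpl.

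In R6/2 mice, Pde10a, Adcy5, Adcy9, Gucy1b3, Gucy2c and Pde3a were higher with ZFP than with Delta in the IPs of both n_ZFP sets, and no member was called in MG or hSyn. RZ against RD shares its RD libraries with RD against ND, which chose the 15 genes described above. The comparison of RZ with RD asks what the repressor did where mutant huntingtin is present. In the n_ZFP_a_Rpl IP, 18 were higher and 2 were lower of 43 tested (19.1% higher and 14.7% lower over all genes). In the n_ZFP_n_Rpl IP, 7 were higher and 0 were lower of 42 tested (9.47% higher and 7.95% lower over all genes). The 18 higher in n_ZFP_a_Rpl were Adcy1, Adcy3, Adcy5, Adcy9, Gucy1a2, Gucy1a3, Gucy1b3, Gucy2c, Pde10a, Pde1b, Pde1c, Pde2a, Pde3a, Pde4a, Pde4b, Pde4d, Pde8b and Prkar2b, and the 2 lower were Gucy2f and Pde8a. The 7 higher in n_ZFP_n_Rpl were Adcy5, Adcy9, Gucy1b3, Gucy2c, Pde10a, Pde3a and Prkg2. The median log2 difference of the tested members was 0.18 in n_ZFP_a_Rpl and 0.18 in n_ZFP_n_Rpl, against 0.00 and 0.00 over all genes. In the n_ZFP_a_Rpl Input, 15 were higher and 0 were lower of 45 tested (11.1% higher and 5.03% lower over all genes). In the n_ZFP_n_Rpl Input, 2 were higher and 0 were lower of 44 tested (2.49% higher and 0.828% lower over all genes), namely Pde10a and Adcy5. Leaving out 1 library took the n_ZFP_n_Rpl IP count as low as 3 without RZ 2 and to 4 without any one of RD 1, 2, 3 or 4. The n_ZFP_n_Rpl Input count was 1 without RZ 1, RZ 2 or any one RD library.

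In MG 0 of 43 members were called by edgeR (0.0782% over all genes), 5 had an unadjusted p below 0.05, and DESeq2 called 1. The MG count was 3 without RZ 1. In the hSyn IP 0 of 43 were called by edgeR (0.0391% over all genes), 1 had an unadjusted p below 0.05, and DESeq2 called 0. In the hSyn Input 0 of 44 were called by edgeR (0% over all genes), 2 had an unadjusted p below 0.05, and DESeq2 called 0. Pde10a gave RZ minus RD differences of 0.07 ± 0.15 in MG and -0.04 ± 0.09 in hSyn, and Adcy5 of 0.25 ± 0.17 and 0.00 ± 0.08 (RZ minus RD, log2). Whether the ZFP difference itself differs between sets was not tested. Projection neuron markers moved in parallel. RZ was above RD for 9 of 9 markers in the n_ZFP_a_Rpl IP, 6 of 9 in the n_ZFP_n_Rpl IP and 0 of 9 in the MG and hSyn IPs, with the summed levels given above. Of the astrocyte markers, 9 of 10 were lower in RZ than in RD in the n_ZFP_a_Rpl IP and 2 of 10 were higher in n_ZFP_n_Rpl. Of the interneuron markers, 3 of 6 were higher in RZ than in RD in n_ZFP_a_Rpl and 5 of 6 in n_ZFP_n_Rpl. The part of these shifts in the results was not tested.

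**Figure D3:**
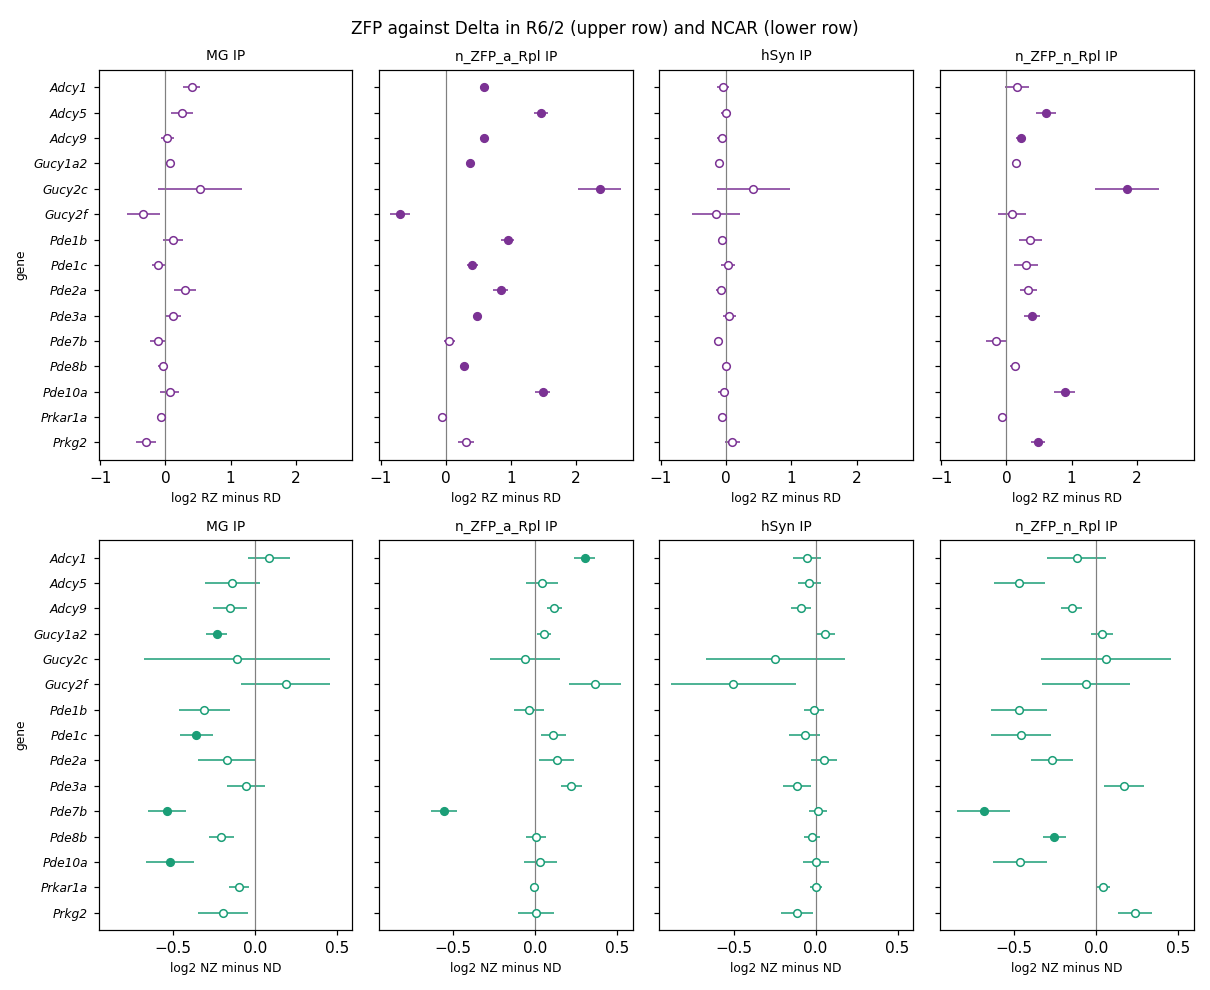
Log2 difference with its standard error (horizontal axis) of the 15 genes called in all 4 IPs, for RZ minus RD (upper row) and NZ minus ND (lower row) in each set, with filled points for calls. In n_ZFP_a_Rpl, Pde10a (1.49) and Adcy5 (1.46) lie to the right for RZ minus RD, while Pde7b (0.06) lies at 0 and is the lowest point for NZ minus ND (-0.56).

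RZ minus RD was also measured for these 15 genes in the Inputs. In the n_ZFP_a_Rpl Input the log2 differences were 0.21 for Adcy1, 0.86 for Adcy5, 0.37 for Adcy9, 0.26 for Gucy1a2, 1.27 for Gucy2c, 0.16 for Gucy2f, 1.05 for Pde10a, 0.55 for Pde1b, 0.22 for Pde1c, 0.46 for Pde2a, 0.29 for Pde3a, 0.11 for Pde7b, 0.22 for Pde8b, -0.04 for Prkar1a and 0.20 for Prkg2 (SE 0.03 to 0.64), of which 9 passed. In the n_ZFP_n_Rpl Input they were 0.12 for Adcy1, 0.53 for Adcy5, 0.14 for Adcy9, 0.09 for Gucy1a2, 1.14 for Gucy2c, -0.05 for Gucy2f, 0.82 for Pde10a, 0.38 for Pde1b, 0.10 for Pde1c, 0.25 for Pde2a, 0.23 for Pde3a, 0.05 for Pde7b, 0.17 for Pde8b, -0.02 for Prkar1a and 0.18 for Prkg2 (SE 0.04 to 0.55). In the hSyn Input none passed. Pde7b passed in none of the 3.

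The ZFP difference in R6/2 (RZ minus RD) was then tested against that in NCAR (NZ minus ND). In the n_ZFP_a_Rpl IP, 13 were higher and 2 were lower of 43 tested (11.4% higher and 5.07% lower over all genes). In the n_ZFP_n_Rpl IP, 8 were higher and 0 were lower of 42 tested (8.47% higher and 4.68% lower over all genes). Among members with a mean of at least 1 CPM, Pde10a and Adcy5 were highest in both sets, at 1.45 ± 0.15 and 1.42 ± 0.15 in n_ZFP_a_Rpl and at 1.35 ± 0.23 and 1.08 ± 0.22 in n_ZFP_n_Rpl (log2, edgeR adjusted p at most 0.00568). Gucy2c, with a mean below 1 CPM, was higher still in n_ZFP_a_Rpl. The values of the 15 genes in n_ZFP_a_Rpl were 0.29 for Adcy1, 1.42 for Adcy5, 0.46 for Adcy9, 0.32 for Gucy1a2, 2.42 for Gucy2c, -1.06 for Gucy2f, 1.45 for Pde10a, 0.99 for Pde1b, 0.30 for Pde1c, 0.71 for Pde2a, 0.26 for Pde3a, 0.61 for Pde7b, 0.28 for Pde8b, -0.06 for Prkar1a and 0.31 for Prkg2 (SE 0.04 to 0.40). In n_ZFP_n_Rpl they were 0.28 for Adcy1, 1.08 for Adcy5, 0.37 for Adcy9, 0.12 for Gucy1a2, 1.79 for Gucy2c, 0.15 for Gucy2f, 1.35 for Pde10a, 0.84 for Pde1b, 0.76 for Pde1c, 0.60 for Pde2a, 0.22 for Pde3a, 0.53 for Pde7b, 0.38 for Pde8b, -0.11 for Prkar1a and 0.25 for Prkg2 (SE 0.05 to 0.63). Outside the 15, Adcy3, Gucy1a3 and Pde4a were higher and Pde8a lower in n_ZFP_a_Rpl, and Adcy3 and Gucy1b3 were higher in n_ZFP_n_Rpl. The n_ZFP_n_Rpl count fell to 5 without RZ 1. In MG and hSyn 0 of 43 members passed (0% over all genes) and DESeq2 called 0. An unadjusted p was below 0.05 for 6 in MG and 2 in hSyn.

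R6/2 mice with ZFP differed from NCAR mice with Delta in every set. In the MG IP, 4 were higher and 16 were lower of 43 tested (19.4% higher and 17.6% lower over all genes). In the n_ZFP_a_Rpl IP, 3 were higher and 12 were lower of 43 tested (11.3% higher and 13.1% lower over all genes). Pde7b was the lowest in n_ZFP_a_Rpl among members above 1 CPM (-0.95 ± 0.08), ahead of Gucy2e (-0.73 ± 0.12) and Pde10a (-0.66 ± 0.10). In the hSyn IP, 9 were higher and 21 were lower of 43 tested (25.8% higher and 25.4% lower over all genes). In the n_ZFP_n_Rpl IP, 3 were higher and 10 were lower of 42 tested (14.7% higher and 16.5% lower over all genes). The lowest there above 1 CPM were Pde7b (-1.20 ± 0.16), Pde10a (-1.18 ± 0.17) and Pde1c (-1.08 ± 0.18). In MG and hSyn Pde10a was lowest, at -2.22 ± 0.15 in MG and -2.10 ± 0.08 in hSyn, and Adcy5 gave -1.62 ± 0.17 and -1.30 ± 0.07. On the higher side stood Gucy2f in MG (1.69 ± 0.27) and n_ZFP_a_Rpl (1.86 ± 0.15), Pde11a in MG (0.65 ± 0.17) and hSyn (0.92 ± 0.29), and Pde4d in n_ZFP_a_Rpl (0.38 ± 0.05) and n_ZFP_n_Rpl (0.29 ± 0.05). Prkar2a, the RII-alpha subunit, was higher in hSyn (0.34 ± 0.06) and n_ZFP_n_Rpl (0.23 ± 0.08), Pde1a in hSyn (0.32 ± 0.10) and Prkar1b in MG (0.26 ± 0.07). RZ against ND shares the ND libraries with RD against ND and the RZ libraries with RZ against RD.

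In NCAR mice, few members differed between ZFP and Delta, and Pde7b was the member called in the most fits. In the MG IP, 2 were higher and 6 were lower of 43 tested (3.68% higher and 3.36% lower over all genes). Gucy1a3 (-0.53 ± 0.10), Pde7b (-0.54 ± 0.12) and Pde10a (-0.52 ± 0.15) were the lowest, with Gucy1b3, Pde1c and Gucy1a2 also lower and Adcy8 (0.45 ± 0.13) and Adcy6 (0.30 ± 0.09) higher (log2, highest edgeR adjusted p = 0.0472). The projection neuron marker sum in MG was 3038 to 4691 CPM in NZ and 5335 to 5780 CPM in ND. Of its 9 markers 5 were called lower, and their part in these calls was not tested. The MG count depended on single libraries. It was 0 without ND 1, ND 2, NZ 3 or NZ 5, 1 without ND 3 and 4 without ND 4, and reached 10 at most. In the n_ZFP_a_Rpl IP, 2 were higher and 1 were lower of 43 tested (1.2% higher and 0.872% lower over all genes), with Adcy1 (0.30 ± 0.06) and Pde4d (0.25 ± 0.05) higher and Pde7b (-0.56 ± 0.08, edgeR adjusted p = 0.00132) lower. Without ND 2, ND 3 or NZ 4 that count was 1. In the n_ZFP_n_Rpl IP, 0 were higher and 4 were lower of 42 tested (2.86% higher and 4.5% lower over all genes), namely Pde7b (-0.69 ± 0.16), Adcy3 (-0.35 ± 0.05), Pde8b (-0.25 ± 0.07) and Prkacb. There the marker sum was 3957 to 5400 CPM in NZ and 4954 to 7894 CPM in ND, with overlap, and 0 of 9 markers were called. The count of 4 members was 1 without NZ 2, ND 3 or ND 4, 2 without NZ 3 or NZ 4, and 7 without ND 1. In the hSyn IP 0 of 43 were called by edgeR (0.0261% over all genes), 1 had an unadjusted p below 0.05 and DESeq2 called 0.

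In the n_ZFP_a_Rpl Input, 0 were higher and 1 were lower of 45 tested (0.475% higher and 0.482% lower over all genes), the 1 being Pde7b (-0.29 ± 0.05, edgeR adjusted p = 0.00501). In the n_ZFP_n_Rpl Input, 1 were higher and 5 were lower of 44 tested (0.695% higher and 2.33% lower over all genes), with Adcy8 (0.54 ± 0.12) higher and Pde7b (-0.66 ± 0.14), Pde10a (-0.58 ± 0.15), Adcy5 (-0.57 ± 0.13), Adcy3 and Pde8b lower. The projection neuron marker sum in that Input was 2970 to 3655 CPM in NZ and 3743 to 6439 CPM in ND, without overlap. Of its 9 markers 2 were called lower, and their part in these calls was not tested. The count of 6 members was 0 without NZ 2, NZ 3, ND 3 or ND 4, 1 without NZ 1, 2 without NZ 4, and 13 without ND 1. In the hSyn Input 0 of 44 were called by edgeR (0.00622% over all genes), 2 had an unadjusted p below 0.05 and DESeq2 called 0. So Pde7b was lower in NZ than in ND in the MG IP and in both fractions of n_ZFP_a_Rpl and n_ZFP_n_Rpl, and was called in neither fraction of hSyn. Its levels stand above. In the n_ZFP_a_Rpl Input the 15 values were 0.15 for Adcy1, 0.03 for Adcy5, 0.09 for Adcy9, 0.01 for Gucy1a2, 0.02 for Gucy2c, 0.09 for Gucy2f, -0.04 for Pde10a, -0.02 for Pde1b, -0.04 for Pde1c, 0.03 for Pde2a, 0.05 for Pde3a, -0.29 for Pde7b, -0.01 for Pde8b, 0.03 for Prkar1a and -0.12 for Prkg2 (SE 0.03 to 0.38).

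IP and Input RNA differed for most members, as for most genes. The rankings below are of called members with a mean of at least 1 CPM. In hSyn, 28 were higher and 11 were lower of 45 tested (39.2% higher and 39.5% lower over all genes). The highest there were Pde10a (0.73 ± 0.05), Pde7b (0.70 ± 0.04) and Prkar1b (0.69 ± 0.04), and the lowest were Gucy2f (-2.05 ± 0.14), Adcy7 (-1.84 ± 0.18) and Pde8a (-1.84 ± 0.10). In n_ZFP_n_Rpl, 27 were higher and 13 were lower of 44 tested (42.6% higher and 40.7% lower over all genes). Gucy1b3 (0.89 ± 0.03), Pde1b (0.88 ± 0.08) and Pde10a (0.79 ± 0.08) were highest and Gucy2f (-2.65 ± 0.09), Pde8a (-1.99 ± 0.07) and Pde3b (-1.64 ± 0.04) lowest. Pde10a was among the 3 highest in both neuron sets. In the astrocyte set n_ZFP_a_Rpl, 18 were higher and 14 were lower of 45 tested (42.1% higher and 42.8% lower over all genes). The highest were Adcy2 (1.32 ± 0.06), Pde3a (1.07 ± 0.04) and Gucy2e (1.01 ± 0.07), and the lowest were Pde3b (-1.998 ± 0.03), Pde7a (-1.18 ± 0.02) and Pde8a (-1.13 ± 0.06). Adcy4, with a mean below 1 CPM, was lower in the IP of all 3 sets, at -4.61 ± 0.18 in n_ZFP_a_Rpl, -3.80 ± 0.23 in hSyn and -3.82 ± 0.13 in n_ZFP_n_Rpl, and it was singled out after its values were seen.

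**Figure D4:**
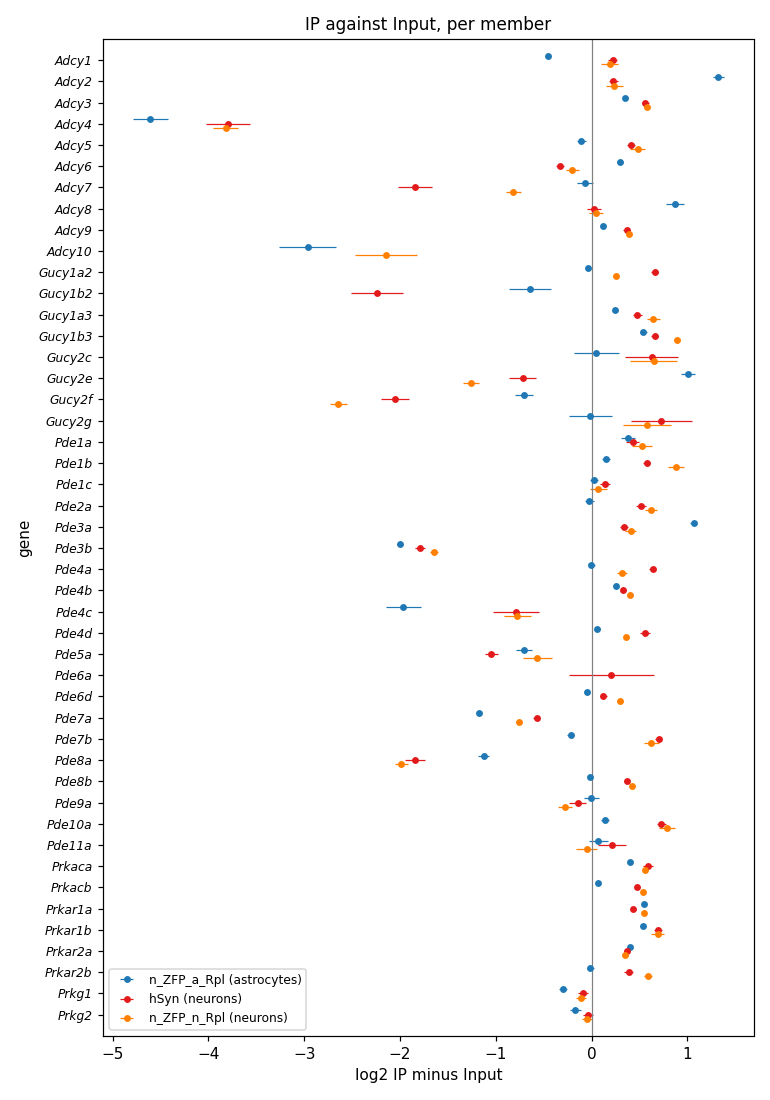
Log2 difference of IP minus Input with its standard error (horizontal axis) for each tested gene (rows, by role) in the 3 sets that have an Input. Adcy2 lies at 1.32 in n_ZFP_a_Rpl, against 0.23 in hSyn and 0.24 in n_ZFP_n_Rpl.

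The 15 genes called in all 4 IPs split by set. In n_ZFP_a_Rpl their IP minus Input log2 differences were -0.46 for Adcy1, -0.11 for Adcy5, 0.12 for Adcy9, -0.04 for Gucy1a2, 0.05 for Gucy2c, -0.71 for Gucy2f, 0.14 for Pde10a, 0.15 for Pde1b, 0.02 for Pde1c, -0.02 for Pde2a, 1.07 for Pde3a, -0.22 for Pde7b, -0.02 for Pde8b, 0.55 for Prkar1a and -0.17 for Prkg2 (SE 0.01 to 0.23), with 5 higher and 5 lower. In hSyn they were 0.22 for Adcy1, 0.41 for Adcy5, 0.37 for Adcy9, 0.66 for Gucy1a2, 0.63 for Gucy2c, -2.05 for Gucy2f, 0.73 for Pde10a, 0.58 for Pde1b, 0.14 for Pde1c, 0.52 for Pde2a, 0.34 for Pde3a, 0.70 for Pde7b, 0.37 for Pde8b, 0.43 for Prkar1a and -0.04 for Prkg2 (SE 0.02 to 0.27), with 13 higher and 1 lower. In n_ZFP_n_Rpl they were 0.19 for Adcy1, 0.48 for Adcy5, 0.39 for Adcy9, 0.25 for Gucy1a2, 0.65 for Gucy2c, -2.65 for Gucy2f, 0.79 for Pde10a, 0.88 for Pde1b, 0.07 for Pde1c, 0.62 for Pde2a, 0.41 for Pde3a, 0.62 for Pde7b, 0.42 for Pde8b, 0.54 for Prkar1a and -0.05 for Prkg2 (SE 0.02 to 0.25), with 12 higher and 1 lower. Gucy2f was the 1 lower gene in both neuron sets. Adcy5, Pde7b and Adcy1 were lower in the astrocyte IP than in its Input and higher in both neuron IPs. With IP and Input of the same number as a replicate block, the counts of calls were 34 in n_ZFP_a_Rpl, 40 in hSyn and 41 in n_ZFP_n_Rpl.

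Whether the RD minus ND difference itself differed between IP and Input was tested as the difference in IP less that in Input. In n_ZFP_a_Rpl 1 of 45 members passed (1.86% over all genes), Gucy2f at 1.48 ± 0.28 (edgeR adjusted p = 0.0033). In n_ZFP_n_Rpl 1 of 44 passed (3.68%), Pde8a at 0.78 ± 0.19. In hSyn 1 of 45 passed (1.01%), Pde3b at 0.60 ± 0.15 (edgeR adjusted p = 0.0494), but not without any one of IP ND 0, 1, 2 or 4, IP RD 1, 2 or 3, Input ND 0, 3, 4 or 5, or Input RD 1, 2 or 3. For Pde10a and Adcy5 the difference was not past the threshold in these fits. The IP and Input libraries of n_ZFP_a_Rpl and n_ZFP_n_Rpl pair by number. With that pairing as a replicate block, 2 members passed in n_ZFP_a_Rpl (5.74% over all genes), Gucy2f at 1.46 ± 0.22 and Prkar1b at -0.21 ± 0.05. In n_ZFP_n_Rpl 15 passed with the block (24% over all genes). Of these, Gucy2f (0.64 ± 0.23), Pde10a (0.24 ± 0.08) and Pde8a (0.78 ± 0.14) were higher, and Adcy2, Adcy6, Adcy8, Adcy9, Gucy2g, Pde1a, Pde1c, Pde5a, Pde7a, Prkaca, Prkar1b and Prkg2 were lower, with Pde1c at -0.44 ± 0.06 and Prkg2 at -0.39 ± 0.13.

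Without the block, the IP less Input values of the 15 genes in n_ZFP_a_Rpl were -0.08 for Adcy1, -0.10 for Adcy5, 0.07 for Adcy9, 0.14 for Gucy1a2, -0.47 for Gucy2c, 1.48 for Gucy2f, 0.01 for Pde10a, 0.05 for Pde1b, -0.03 for Pde1c, -0.07 for Pde2a, -0.19 for Pde3a, -0.01 for Pde7b, 0.13 for Pde8b, 0.04 for Prkar1a and -0.17 for Prkg2 (SE 0.04 to 0.72). In n_ZFP_n_Rpl they were -0.20 for Adcy1, 0.15 for Adcy5, -0.13 for Adcy9, 0.11 for Gucy1a2, -0.46 for Gucy2c, 0.65 for Gucy2f, 0.25 for Pde10a, 0.13 for Pde1b, -0.45 for Pde1c, -0.03 for Pde2a, -0.16 for Pde3a, 0.17 for Pde7b, 0.08 for Pde8b, -0.05 for Prkar1a and -0.39 for Prkg2 (SE 0.05 to 0.77). Gucy2f in n_ZFP_a_Rpl was the one of these values past the threshold.

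The RD minus ND difference averaged over both neuron IPs was set against that over both astrocyte IPs, with cell type and set not fully separable. Of 44 members, 5 were higher, near the share of all genes (11.5%), and 1 lower (9.15%). Pde1c was lower (-0.79 ± 0.13, edgeR adjusted p = 1.63e-05), so its difference was further below 0 in the neuron IPs. Adcy5 (0.53 ± 0.14), Pde4a (0.38 ± 0.10) and Prkar2a (0.25 ± 0.09) were highest, with Prkaca and Gucy1a2 also higher. Gucy1a2 did not pass without hSyn RD 1 or 2 or n_ZFP_a_Rpl RD 2 or 3, nor Prkaca without MG RD 3 or ND 1 or any one RD library of hSyn or n_ZFP_a_Rpl. Prkar2a did not pass with RLE factors, nor without MG RD 1 or 4, hSyn ND 2, n_ZFP_a_Rpl ND 4, n_ZFP_n_Rpl RD 1 or 2, n_ZFP_n_Rpl ND 3 or 4, or any one RD library of hSyn or n_ZFP_a_Rpl. Adcy5, Pde4a and Pde1c passed under every alternative run. Adcy5 was thus further below 0 in the astrocyte IPs. The Inputs, given above, differed in the same direction for Pde1c and Adcy5. The count was 3 to 7 without 1 library, and 3 without n_ZFP_a_Rpl RD 2. The values of the 15 genes were 0.21 for Adcy1, 0.53 for Adcy5, -0.02 for Adcy9, 0.20 for Gucy1a2, 0.15 for Gucy2c, -0.68 for Gucy2f, 0.16 for Pde10a, 0.11 for Pde1b, -0.79 for Pde1c, 0.32 for Pde2a, -0.01 for Pde3a, 0.02 for Pde7b, -0.09 for Pde8b, 0.00 for Prkar1a and -0.06 for Prkg2 (SE 0.04 to 0.52). In this test 6 of 10 astrocyte markers were lower and 1 of 9 projection neuron markers higher. The part of these and of the set was not tested.

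Neuron and astrocyte IP levels were compared in the ND libraries of the n_ZFP sets, where cell type and set cannot be told apart. Of 44 members, 17 were higher and 8 lower in the neuron IP (33.2% higher and 29.9% lower over all genes). Gucy2g (3.17 ± 0.46), Adcy1 (1.53 ± 0.15) and Pde5a (1.14 ± 0.29) were highest among called members with a mean of at least 1 CPM. The lowest were Gucy2e (-2.27 ± 0.16), Gucy2f (-1.39 ± 0.21) and Pde3a (-1.02 ± 0.10), higher in the astrocyte IP. For these the median CPM was 1.14, 0.503 and 10.6 in the hSyn IP and 6.025, 1.41 and 19.99 in the n_ZFP_a_Rpl IP. In the Inputs it was 3.94, 5.355 and 8.46 in n_ZFP_n_Rpl and 3.30, 4.01 and 10.5 in n_ZFP_a_Rpl. The part of the set in these differences was not tested. The 15 genes gave 1.53 for Adcy1, 0.02 for Adcy5, 0.31 for Adcy9, 0.19 for Gucy1a2, 0.45 for Gucy2c, -1.39 for Gucy2f, 0.10 for Pde10a, 0.25 for Pde1b, 0.09 for Pde1c, 0.38 for Pde2a, -1.02 for Pde3a, 0.46 for Pde7b, 0.24 for Pde8b, -0.03 for Prkar1a and -0.05 for Prkg2 (SE 0.03 to 0.33).

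Most of the receptors that signal to adenylyl cyclase were lower in RD. Of 15 tested receptors coupled to adenylyl cyclase, RD against ND gave 0 higher and 12 lower in MG, 0 higher and 14 lower in n_ZFP_a_Rpl, 0 higher and 12 lower in hSyn and 0 higher and 13 lower in n_ZFP_n_Rpl (medians -1.38 in MG, -1.48 in n_ZFP_a_Rpl, -1.32 in hSyn and -1.39 in n_ZFP_n_Rpl). Over all genes the calls were 17.4% higher and 16.2% lower in MG, 20.6% higher and 24.7% lower in n_ZFP_a_Rpl, 25.4% higher and 25.5% lower in hSyn and 25.2% higher and 26.2% lower in n_ZFP_n_Rpl. The lowest in n_ZFP_a_Rpl were Htr4, a serotonin receptor (-1.81 ± 0.17), and Adora2a, an adenosine receptor (-1.78 ± 0.12). In n_ZFP_n_Rpl they were Adora2a (-1.66 ± 0.23) and Oprd1, the delta opioid receptor (-1.62 ± 0.08). RZ against RD gave 0 in MG (all genes 0.0782%) and hSyn (0.0391%). It gave 13 higher and 0 lower in n_ZFP_a_Rpl (19.1% and 14.7%) and 10 higher and 0 lower in n_ZFP_n_Rpl (9.47% and 7.95%). Among the higher ones was Oprk1, the kappa opioid receptor, in n_ZFP_a_Rpl (1.72 ± 0.11) and n_ZFP_n_Rpl (1.29 ± 0.18). Several of these receptors are also in the projection neuron marker list, whose sums are given above.

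Of 6 PKA substrates and inhibitors, RD against ND gave 0 higher and 4 lower in MG, 0 higher and 4 lower in n_ZFP_a_Rpl, 1 higher and 4 lower in hSyn and 1 higher and 4 lower in n_ZFP_n_Rpl, against 17.4% to 25.4% higher and 16.2% to 26.2% lower of all genes. Ppp1r1b (DARPP-32), which PKA turns into a phosphatase inhibitor, was lower in RD (-1.87 ± 0.14 in MG, -1.86 ± 0.14 in n_ZFP_a_Rpl, -1.60 ± 0.09 in hSyn and -1.82 ± 0.17 in n_ZFP_n_Rpl), as was Arpp19, a further phosphatase regulator (-1.94 ± 0.09 in n_ZFP_a_Rpl and -2.01 ± 0.11 in n_ZFP_n_Rpl). RZ against RD gave 0 in MG and hSyn. It gave 3 higher and 1 lower in n_ZFP_a_Rpl (all genes 19.1% and 14.7%) and in n_ZFP_n_Rpl (9.47% and 7.95%). Ppp1r1b (1.29 ± 0.14) and Arpp19 (1.20 ± 0.09) were higher in RZ in n_ZFP_a_Rpl, while Arpp21 was lower in RZ than in RD in n_ZFP_a_Rpl (-0.92 ± 0.11) and n_ZFP_n_Rpl (-0.99 ± 0.10), below an RD level that was itself lower than ND.

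Of 7 G protein alpha subunits, RD against ND gave 3 higher and 2 lower in MG, 2 higher and 3 lower in n_ZFP_a_Rpl, 4 higher and 2 lower in hSyn and 2 higher and 2 lower in n_ZFP_n_Rpl, against 17.4% to 25.4% higher and 16.2% to 26.2% lower of all genes. Gnal, the olfactory-type stimulatory subunit that couples receptors to Adcy5 in the striatum, was lower in n_ZFP_a_Rpl (-0.49 ± 0.08) and n_ZFP_n_Rpl (-0.54 ± 0.13), as was Gnao1, and the inhibitory subunits Gnai2 (0.33 ± 0.05 and 0.78 ± 0.06) and Gnai3 (0.39 ± 0.04 and 0.26 ± 0.05) were higher in both. The RD against ND count in n_ZFP_n_Rpl was near its share. RZ against RD gave 0 in MG and hSyn. It gave 2 higher and 2 lower in n_ZFP_a_Rpl (all genes 19.1% and 14.7%) and 1 higher and 0 lower in n_ZFP_n_Rpl (9.47% and 7.95%). Gnal was higher in n_ZFP_a_Rpl (0.59 ± 0.08). Of 14 PKA anchors, 11 to 13 of them tested, RD against ND gave 1 higher and 4 lower in MG, 2 higher and 6 lower in n_ZFP_a_Rpl, 1 higher and 5 lower in hSyn and 2 higher and 4 lower in n_ZFP_n_Rpl, against the same shares. Akap5, which holds PKA at synapses, was lower in n_ZFP_a_Rpl (-0.91 ± 0.10) and n_ZFP_n_Rpl (-0.85 ± 0.08), and Akap13 was higher there (0.74 ± 0.08 and 0.35 ± 0.10). RZ against RD gave 0 in MG and hSyn. It gave 5 higher and 3 lower in n_ZFP_a_Rpl and 2 higher and 1 lower in n_ZFP_n_Rpl, with shares as for the subunits. The lower count in n_ZFP_n_Rpl was near its share. In both sets Akap5 was higher (0.94 ± 0.10 and 0.56 ± 0.08) and Akap13 lower (-0.51 ± 0.08 and -0.37 ± 0.10).

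Of 6 tested nitric oxide and natriuretic peptide genes, RD against ND gave 1 higher and 1 lower in MG, 1 higher and 3 lower in n_ZFP_a_Rpl, 1 higher and 3 lower in hSyn and 1 higher and 3 lower in n_ZFP_n_Rpl, against 17.4% to 25.4% higher and 16.2% to 26.2% lower of all genes. The MG count was near that share. Nos1, the neuronal nitric oxide synthase, was lower in n_ZFP_a_Rpl (-1.02 ± 0.09) and n_ZFP_n_Rpl (-1.31 ± 0.10), and Npr2, the receptor of C-type natriuretic peptide, was higher (0.27 ± 0.05 and 0.84 ± 0.05). In RZ against RD, Nos1 was higher (0.93 ± 0.09 and 0.93 ± 0.10) and Npr2 lower (-0.31 ± 0.05 and -0.30 ± 0.05). Nos1 is known from striatal interneurons. Their marker sums, given above, were lower in RD than in ND and higher in RZ than in RD in both sets, and their part in the Nos1 values was not tested. Of the other effectors of cyclic nucleotides, 10 or 11 of 15 tested, RD against ND gave 1 higher and 4 lower in MG, 0 higher and 6 lower in n_ZFP_a_Rpl, 0 higher and 3 lower in hSyn and 2 higher and 4 lower in n_ZFP_n_Rpl, against the same shares. Popdc3, of a family that binds cAMP, was lower in RD (-0.90 ± 0.15 in n_ZFP_a_Rpl and -1.04 ± 0.16 in n_ZFP_n_Rpl) and higher in RZ than in RD (0.66 ± 0.15 and 0.73 ± 0.17). For these effectors RZ against RD gave 0 in MG and hSyn. It gave 5 higher and 1 lower in n_ZFP_a_Rpl (all genes 19.1% and 14.7%) and 1 higher and 0 lower in n_ZFP_n_Rpl (9.47% and 7.95%). Of 8 genes of the CREB family and its coactivators, RD against ND gave 1 higher and 2 lower in each of MG and hSyn. It gave 4 higher and 1 lower in n_ZFP_a_Rpl and 3 higher and 2 lower in n_ZFP_n_Rpl. The MG count, and the lower counts in hSyn and n_ZFP_n_Rpl (25.5% and 26.2% of all genes), were near the shares. In n_ZFP_a_Rpl and n_ZFP_n_Rpl, Crtc1, a coactivator, was lower (-0.61 ± 0.09 and -0.30 ± 0.08). Ep300, an acetyltransferase, was higher there (0.32 ± 0.06 and 0.26 ± 0.06). RZ against RD gave 0 in MG and hSyn. It gave 2 higher and 2 lower in n_ZFP_a_Rpl and 0 higher and 1 lower in n_ZFP_n_Rpl, with shares as for the effectors. The 2 small subunits of the photoreceptor phosphodiesterase were not tested.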

How the data were processed

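Gene expression was measured by RNA-seq (TruSeq libraries) of RiboTag IP and Input RNA in 110 libraries. The deposited values are raw counts per gene, which the authors made with STAR and HTSeq on mm10, per the submitters' processing notes; the sources used here give neither versions nor strand. Of 24060 rows, 4 with repeated symbols were left out. Each set and fraction was fitted with edgeR 4.0.16 (R 4.3.3, limma 3.58.1): TMM scaling, filterByExpr (minimum count 10, minimum total 15), robust quasi-likelihood tests and Benjamini-Hochberg adjustment over all genes, called below 0.05. IP with Input, and the sets with each other, were fitted jointly where compared. A standard error is the size of the log2 difference over the square root of F. The steps were tested on simulated data. Figures were drawn with matplotlib 3.10.9 in Python 3.11.15.

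The members and lists were chosen with earlier results of these data known. Genes called the same way in all 4 IPs for RD against ND are described with every IP library and every comparison. In each other comparison up to 3 highest and 3 lowest called members with a mean of at least 1 CPM are named, and up to 2 genes per direction of each further list. No 2 libraries of a group held identical values, with the lowest chi-square per degree of freedom at 5.39 over 164 pairs. Same-numbered IP and Input deviations correlated at 0.40 to 0.60 in n_ZFP_a_Rpl (15 pairs) and 0.45 to 0.68 in n_ZFP_n_Rpl (16 pairs), taken as paired. In hSyn (14 pairs) ND 2, 3 and 4 gave -0.19 to -0.04 and the rest 0.36 to 0.64. Same numbers in different conditions gave -0.36 to 0.31 and share only a number. Alternatives were each library left out, fits of the 2 groups alone, the number as a replicate block, no filter, RLE factors and DESeq2 1.42.0.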

Additional observations from a re-analysis of the deposited data

Results flagged for a closer look

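Among 210 groups of 4 or 5 libraries of the 15 genes called in all 4 IPs, 8 held a library far from the others, and chance flags about 1 group in 20. Adcy5 stood at 605 CPM in hSyn IP RZ 2 and at 1369 CPM in n_ZFP_a_Rpl IP RZ 2. Adcy9 stood at 177 CPM in MG IP ND 2, Gucy1a2 at 267 CPM in hSyn IP NZ 1, and Pde1c at 145 CPM in hSyn IP ND 1. Gucy2c stood at 0.688 CPM in hSyn IP RZ 1 and at 0.430 CPM in n_ZFP_n_Rpl IP RD 1, and Pde10a at 879 CPM in n_ZFP_n_Rpl IP RD 3.

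Effects that differed by a test of the difference were these. For RD minus ND, neuron less astrocyte IP, the log2 values were 0.53 for Adcy5, 0.20 for Gucy1a2, -0.79 for Pde1c, 0.38 for Pde4a, 0.22 for Prkaca and 0.25 for Prkar2a. For RD minus ND, IP less Input, without pairing, they were 0.60 for Pde3b in hSyn, 1.48 for Gucy2f in n_ZFP_a_Rpl and 0.78 for Pde8a in n_ZFP_n_Rpl. With IP and Input paired by number as a replicate block, 2 members passed in n_ZFP_a_Rpl, Gucy2f (1.46) and Prkar1b (-0.21). In n_ZFP_n_Rpl 15 passed, with Gucy2f (0.64), Pde10a (0.24) and Pde8a (0.78) higher and Adcy2 (-0.36), Adcy6 (-0.47), Adcy8 (-0.48), Adcy9 (-0.13), Gucy2g (-1.11), Pde1a (-0.48), Pde1c (-0.44), Pde5a (-0.64), Pde7a (-0.18), Prkaca (-0.16), Prkar1b (-0.29) and Prkg2 (-0.39) lower.

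The ZFP difference in R6/2 less that in NCAR passed in n_ZFP_a_Rpl for Adcy1 (0.29), Adcy3 (0.29), Adcy5 (1.42), Adcy9 (0.46), Gucy1a2 (0.32), Gucy1a3 (0.43), Gucy2c (2.42), Gucy2f (-1.06), Pde10a (1.45), Pde1b (0.99), Pde2a (0.71), Pde4a (0.54), Pde7b (0.61), Pde8a (-0.65) and Pde8b (0.28). In n_ZFP_n_Rpl it passed for Adcy3 (0.28), Adcy5 (1.08), Adcy9 (0.37), Gucy1b3 (0.30), Pde10a (1.35), Pde1b (0.84), Pde2a (0.60) and Pde8b (0.38).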

How the results depend on the processing

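No called value reversed under any alternative. Of the members' calls, 4 were lost in DESeq2 (488 held), 9 with RLE factors (483 held), 27 without the filter on low counts (465 held), 46 with the number as a replicate block (446 held) and 36 with only the 2 groups (288 held). Leaving out 1 library at a time lost 563 calls, over all such fits, and held 6239. Counts of called members moved by over 1.5 times in the following cases, and the cause was not tested. RZ against RD in MG gave 0 members, and 1 in DESeq2. NZ against ND in MG gave 8, but 4 without the filter, 0 with the replicate block and 5 with only the 2 groups. NZ against ND in n_ZFP_a_Rpl gave 3 in IP, but 1 with only the 2 groups, and 1 in Input, but 2 with the replicate block and 2 in DESeq2. NZ against ND in n_ZFP_n_Rpl gave 4 in IP, but 9 in DESeq2 and 1 with only the 2 groups, and 6 in Input, but 0 with the replicate block, 11 in DESeq2 and 0 with only the 2 groups. RZ against RD in the n_ZFP_n_Rpl Input gave 2, but 1 without the filter, 1 with the replicate block and 4 in DESeq2. RD against ND, IP less Input, gave 1 in each set. In hSyn it gave 0 with RLE factors, 0 without the filter and 2 with the replicate block, though hSyn was not taken as paired. In n_ZFP_a_Rpl it gave 2 with the replicate block and 2 in DESeq2, and in n_ZFP_n_Rpl 15 with the replicate block. Without 1 library, RZ against RD gave 0 to 3 in MG, 3 to 6 in the n_ZFP_n_Rpl IP and 1 to 3 in its Input. NZ against ND gave 0 to 10 in MG, 1 to 3 in the n_ZFP_a_Rpl IP, 1 to 7 in the n_ZFP_n_Rpl IP and 0 to 13 in its Input. The ZFP difference between genotypes gave 5 to 10 in n_ZFP_n_Rpl, neuron less astrocyte gave 3 to 7, and IP less Input gave 0 to 1 in hSyn and 1 to 2 in n_ZFP_n_Rpl. The low-count Gucy2c, at 1 to 61 reads in a library, limits its precision.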
